A study of Mus musculus with 6 samples.

Results

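Bile duct-derived liver progenitor-like cells (Bec_LPCs, 2 libraries) were compared with hepatocyte-derived ones (Hep_LPCs, 2 libraries) by RNA sequencing, 4 of the 6 libraries of the series. The libraries were chosen by title, and the comparison runs over the 20552 gene symbols that the tables of all 6 libraries share, of which 12853 had enough reads to test. The other 2 libraries, of non-parenchymal cell-derived cells (NPC_LPCs), entered the fit to help estimate the spread. Every group is C57BL/6, labelled 6 to 8 weeks old and grown in Transition and Expansion Medium (TEM), the culture medium of this system. Bec_LPCs came from wild-type (WT) mice: intrahepatic bile duct pieces, cleaned of hepatocytes, connective tissue and portal vein branches, were plated in matrigel, cells grew out as a monolayer over 1 to 2 passages, and Epcam+ cells were sorted. Hep_LPCs came from hepatocytes of ROSA26tdTomato mice that received AAV8-TBG-Cre, a virus whose TBG promoter drives Cre recombinase in hepatocytes, at 8 weeks by the growth protocol. NPC_LPCs came from AlbCreERT/R26GFP mice, also at 8 weeks by the growth protocol. A sort and a passage number are stated for Bec_LPCs alone. The labels do not say whether replicates are separate cultures or animals, so a p-value measures only the spread between these libraries. That spread may be technical in Bec_LPCs, whereas the Hep_LPCs libraries differed in Y-linked genes, as given below.

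Hepatocytes make plasma proteins and run the liver's metabolism, under transcription factors such as HNF4A. Biliary epithelial cells line the bile ducts, carry a primary cilium and express KRT7, KRT19, SOX9 and EPCAM. Both cell types arise from the same fetal progenitor, and in injured liver or in suitable culture each can take up a proliferating state with mixed hepatocyte and duct features, the state called a progenitor-like cell. NF-kB and immediate early genes answer stress and inflammatory signals, sterol genes follow the factor SREBP2, and collagen, lysyl oxidase and contractile genes are commonly read as products of mesenchymal cells, although cultured epithelium can make them.

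The tables held 22985844 and 22634867 reads for Bec_LPCs and 18123118 and 17575998 for Hep_LPCs, replicate 1 first, as in every pair of values below. Levels are given as CPM, read counts relative to the TMM-scaled library size, and a floor of 3 reads is 0.127 to 0.178 CPM. Replicates of Bec_LPCs were far closer to each other (chi-square over degrees of freedom 5.53) than those of Hep_LPCs (92.5) or NPC_LPCs (111). Hep_LPCs replicate 2 stood apart in Y-linked genes: Ddx3y, a Y-linked RNA helicase, had 1 read there and 60.5 CPM in Hep_LPCs replicate 1, with 91.5 and 102 CPM in Bec_LPCs. The 9 defining bile duct markers summed to 4389.7 and 3770.5 CPM in Bec_LPCs and to 5040.0 and 2337 CPM in Hep_LPCs, so these sums overlapped. Spp1, given below as uncertain, was the largest part of each sum, and Epcam, the sorting antigen, was included. The overlap therefore does not describe the other markers. The 6 hepatocyte markers summed to 128 and 106 CPM and to 257 and 266 CPM, nearly all of it Hnf4a, with Cyp2e1 at 0 in all 4 libraries. Defining markers of leukocytes, endothelial cells and stellate cells were low. Among the 6 leukocyte markers Cd3e and Clec4f were at 0 in all 4 libraries, and the 6 summed to 1.56 and 1.33 CPM in Bec_LPCs and 1.17 and 1.84 CPM in Hep_LPCs. The 4 endothelial markers summed to 2.24 and 2.32 CPM and to 7.39 and 6.24 CPM, and the 4 stellate markers, with Lrat at 0, to 13.9 and 12.3 CPM and to 10.1 and 7.13 CPM. Mesothelial markers were high in both, at 566 and 529 CPM and at 210.2 and 832 CPM, nearly all from Msln. The source tissue, mouse line, virus, sort and the way the tables were counted all differ between Bec_LPCs and Hep_LPCs, so their effects cannot be told apart.

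Of the 12853 genes tested, 4277 (33.3%) were called, that is, had an adjusted p under 0.05. Of these, 2068 (16.1%) were higher and 2209 (17.2%) lower in Bec_LPCs, and the median log2 fold change over all genes tested was 0.03. Fold changes are Bec_LPCs minus Hep_LPCs on the log2 scale ± SE, so positive values mean higher in Bec_LPCs. Each of the 4277 called genes had non-overlapping Bec_LPCs and Hep_LPCs libraries, but so had 9970 (77.6%) of all genes tested. The count rests on both Bec_LPCs libraries, since 471 genes were called without Bec_LPCs replicate 1 and 482 without Bec_LPCs replicate 2. Only 431 genes (3.35%) kept their call and direction in each of the 6 fits that left out 1 library, 190 (1.48%) higher and 241 (1.88%) lower. Without TMM, on plain library sizes, 60.8% of 4416 calls were higher against 48.4% here, and the median of all genes moved to 0.21, so the balance of higher and lower calls depends on the scaling. No gene list described below changed the sign of its median under that scaling.

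The Bec_LPCs and Hep_LPCs tables were not made alike, and genes whose exons overlap another gene were treated as uncertain. A gene is termed counted alike here when it is protein-coding, at most 10% of its exonic length lies under exons of another listed gene and no near-identical copy exists. Of 10374 such genes in the fit, 3348 (32.3%) were called, 1780 higher and 1568 lower. Among the 2479 others 929 were called. Large decreases were frequent among them: 52 were lower in Bec_LPCs by more than 8-fold from at least 32 CPM and 4 were higher by as much, against 71 and 64 of the counted-alike genes. Raver1, an RNA-binding protein, shows the pattern, with 0 reads in both Bec_LPCs libraries and 218 and 161 CPM in Hep_LPCs and 146 and 163 CPM in NPC_LPCs, and 99.7% of its exonic length lies under another gene. Brms1, Ccn2, Cdkn1c, Fen1, Fgf2, Hmgcs1, Icam1, Lef1, Lsr, Nrarp, Onecut1, Rbm42, Spp1, Tagln and Tap2 meet this definition, but over 10% of their exonic length lies under some annotated gene, mostly one that no table lists, and they are uncertain too. The other genes named below are counted alike unless stated. All called values named below are from edgeR's quasi-likelihood test over the whole table. Because the cells were measured in bulk, fewer cells of a type and less RNA per cell cannot be told apart.

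**Figure D1:**
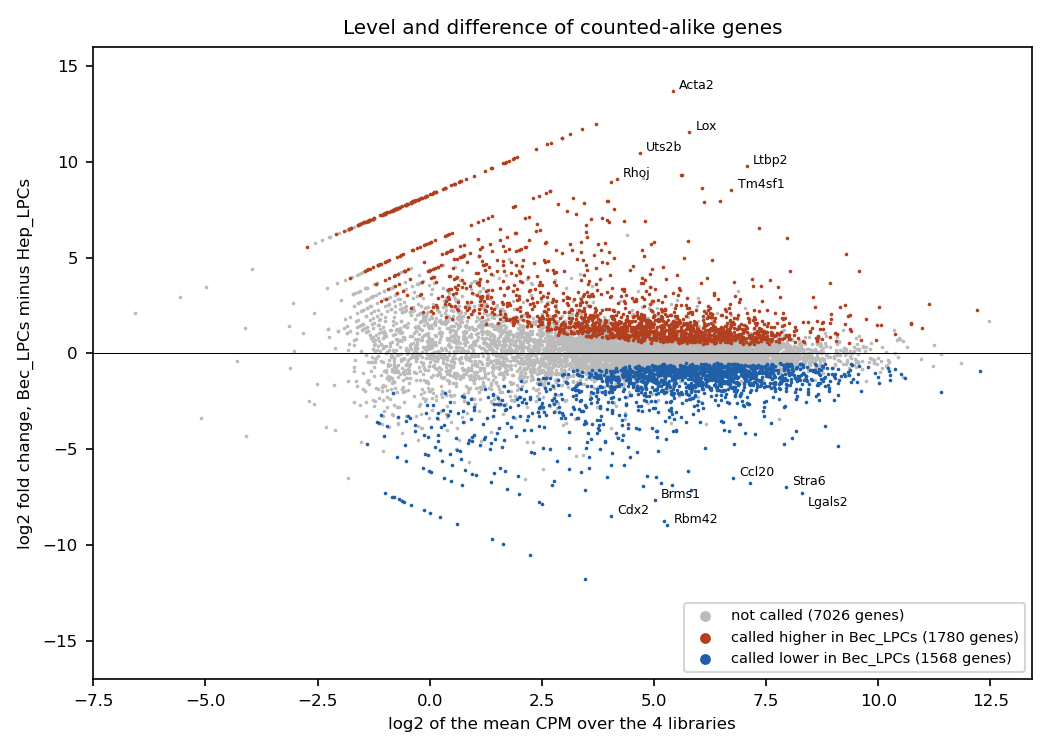
Each point is 1 of the 10374 counted-alike genes tested, with the log2 of its mean CPM over the 4 libraries on the x axis and its log2 fold change, Bec_LPCs minus Hep_LPCs, on the y axis. The 1780 genes called higher lie above 0 and the 1568 called lower below it, with larger differences at low levels, and the slanted lines of points at the upper and lower left are genes with 0 reads, or nearly so, in 1 group.

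Counting only counted-alike genes that were called and reached 32 CPM in either group, the 12 largest increases in Bec_LPCs encode matrix, contractile, membrane and junction proteins. Acta2, smooth muscle actin (chromosome 19, 34241090 to 34255590 in mm10), was at 77.7 and 94.2 CPM in Bec_LPCs and 0 reads in both Hep_LPCs libraries, at least 485-fold higher in Bec_LPCs (adjusted p = 0.0145) against the floor of 3 reads per library. Lox, the lysyl oxidase that crosslinks collagen and elastin (chromosome 18, 52516067 to 52529867), was at 95.2 and 125 CPM in Bec_LPCs and 1 and 0 reads in Hep_LPCs, 3721-fold higher with a counting interval of 668 to 147001 (adjusted p = 0.00615). Ltbp2, a latent TGF-beta binding protein of elastic microfibrils (chromosome 12, 84783212 to 84876532), was at 226 and 307 CPM in Bec_LPCs and 0.586 and 0 CPM in Hep_LPCs (log2 fold change 9.79 ± 0.89, adjusted p = 0.00255). The Bec_LPCs libraries were close to each other and the Hep_LPCs libraries near 0 for each of these. Bgn, the small matrix proteoglycan biglycan, was at 29.5 and 36.3 CPM in Bec_LPCs and 2 and 0 reads in Hep_LPCs, 557-fold higher with a counting interval of 154 to 4599.9 (adjusted p = 0.005699). The mechanically gated channel gene Piezo2 was at 89.4 and 109 CPM in Bec_LPCs and 0.176 and 0.119 CPM in Hep_LPCs (log2 fold change 9.33 ± 0.79, adjusted p = 0.00223). For Ulbp1, whose product binds the killer cell receptor NKG2D, the values were 96.5 and 98.4 CPM in Bec_LPCs and 0.176 and 0.119 CPM in Hep_LPCs (log2 fold change 9.31 ± 1.06, adjusted p = 0.00418). Cldn4 (claudin-4, a tight junction protein) was at 160.2 and 195 CPM in Bec_LPCs and 0.879 and 0.535 CPM in Hep_LPCs (log2 fold change 7.96 ± 1.99, adjusted p = 0.0301). Tm4sf1, a tetraspanin-like surface protein, was at 212 and 209.6 CPM in Bec_LPCs and 0.703 and 0.416 CPM in Hep_LPCs (log2 fold change 8.54 ± 2.33, adjusted p = 0.0376). The remaining members were Uts2b (a urotensin peptide), Rhoj (a small GTPase), Xirp2 (an actin-binding protein of muscle) and Ptk7 (a Wnt planar polarity receptor). Their Bec_LPCs libraries spanned 35.5 to 176 CPM and their Hep_LPCs libraries 0 to 1.07 CPM. In NPC_LPCs, whose tables are of the same kind as those of Hep_LPCs, 1 of the 2 libraries was high for Ptk7 (1.33 and 122 CPM), Xirp2 (1.74 and 363 CPM), Tm4sf1 (0.463 and 111 CPM) and Cldn4 (0.636 and 58.7 CPM). With limma-voom in place of edgeR, Lox, Cldn4, Rhoj, Tm4sf1, Ptk7 and Xirp2 were not called (adjusted p = 0.052, 0.075, 0.0743, 0.131, 0.179 and 0.342). Lox, Ltbp2, Piezo2, Ulbp1 and Bgn kept the call in each of the 6 fits that left out 1 library. Acta2, Uts2b, Rhoj, Xirp2, Tm4sf1, Cldn4 and Ptk7 lost the call without either Bec_LPCs library (adjusted p from 0.0755 to 0.187). Uts2b, Rhoj, Xirp2, Tm4sf1, Cldn4 and Ptk7 lost it without Hep_LPCs replicate 1 (adjusted p from 0.0814 to 0.197). Uts2b, Rhoj, Xirp2, Tm4sf1, Cldn4 and Ptk7 lost it without Hep_LPCs replicate 2 (adjusted p from 0.0726 to 0.176).

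The 12 largest decreases included gut, kidney and retinoid genes, chemokines and acute phase genes. Cdx2 (chromosome 5, 147300805 to 147307270), which specifies intestinal epithelium, was at 0.0845 and 0.0858 CPM in Bec_LPCs and 34.7 and 30.9 CPM in Hep_LPCs (log2 fold change -8.49 ± 0.39, adjusted p = 5.24e-04). Lgals2, galectin-2 (chromosome 15, 78850860 to 78855529), was at 3.55 and 4.38 CPM in Bec_LPCs and 691 and 560.4 CPM in Hep_LPCs (log2 fold change -7.30 ± 0.25, adjusted p = 2.83e-04). Both genes were also low in NPC_LPCs, at 3.53 and 4.53 CPM for Cdx2 and 8.62 and 8.4 CPM for Lgals2. Stra6, a receptor for the retinol carrier RBP4, was at 4.73 and 2.96 CPM in Bec_LPCs and 563 and 418 CPM in Hep_LPCs (log2 fold change -6.99 ± 1.13, adjusted p = 0.00963). Pax2, a transcription factor of kidney development, was at 1.01 and 0.558 CPM in Bec_LPCs and 49.6 and 175 CPM in Hep_LPCs (log2 fold change -7.14 ± 1.13, adjusted p = 0.00922). Acan, the cartilage proteoglycan aggrecan, was at 0.254 and 0.0858 CPM in Bec_LPCs and 137 and 12.7 CPM in Hep_LPCs (log2 fold change -8.73 ± 1.53, adjusted p = 0.0121). Both Hep_LPCs libraries lay far above Bec_LPCs in each of these, although they differed from each other for Acan and Pax2. Wnt10a, a Wnt ligand, was at 0.465 and 0.386 CPM in Bec_LPCs and 50.8 and 55.7 CPM in Hep_LPCs (log2 fold change -6.95 ± 1.68, adjusted p = 0.0274). Ccl20, a chemokine that attracts CCR6+ leukocytes, was at 2.24 and 2.49 CPM in Bec_LPCs and 129 and 301 CPM in Hep_LPCs (log2 fold change -6.50 ± 0.77, adjusted p = 0.00459). Cxcl2, a neutrophil chemokine, was at 0.761 and 0.687 CPM in Bec_LPCs and 124 and 44.5 CPM in Hep_LPCs (log2 fold change -6.85 ± 0.85, adjusted p = 0.00515). C3, the central complement protein, was at 4.01 and 1.03 CPM in Bec_LPCs and 502 and 56.6 CPM in Hep_LPCs (log2 fold change -6.78 ± 1.44, adjusted p = 0.0195). Lcn2, lipocalin-2, was at 1.099 and 0.215 CPM in Bec_LPCs and 125 and 16.9 CPM in Hep_LPCs (log2 fold change -6.74 ± 1.34, adjusted p = 0.0162). Rbm42 and Brms1 met the rule too, but 75.4% and 79.0% of their exonic length lies under the genes Gm21982 and AC124502.3, which no table lists. Rbm42 was at 0.0423 and 0.258 CPM in Bec_LPCs and 68.2 and 88.2 CPM in Hep_LPCs and 61.1 and 61.2 CPM in NPC_LPCs, Brms1 at 0.592 and 0.0429 CPM in Bec_LPCs and 43.4 and 85.8 CPM in Hep_LPCs and 61.6 and 46.2 CPM in NPC_LPCs, so for both the Bec_LPCs tables alone were near 0, and whether the counting produced this was not tested. With limma-voom in place of edgeR, Acan, C3 and Lcn2 were not called (adjusted p = 0.127, 0.07 and 0.106). Cdx2 and Lgals2 kept the call in each of the 6 fits that left out 1 library. Acan, Pax2, Stra6, Wnt10a, Cxcl2, C3, Lcn2 and Ccl20 lost the call without either Bec_LPCs library (adjusted p from 0.0509 to 0.209). Wnt10a lost it without Hep_LPCs replicate 1 (adjusted p = 0.0743). Wnt10a lost it without Hep_LPCs replicate 2 (adjusted p = 0.0684).

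**Figure D2:**
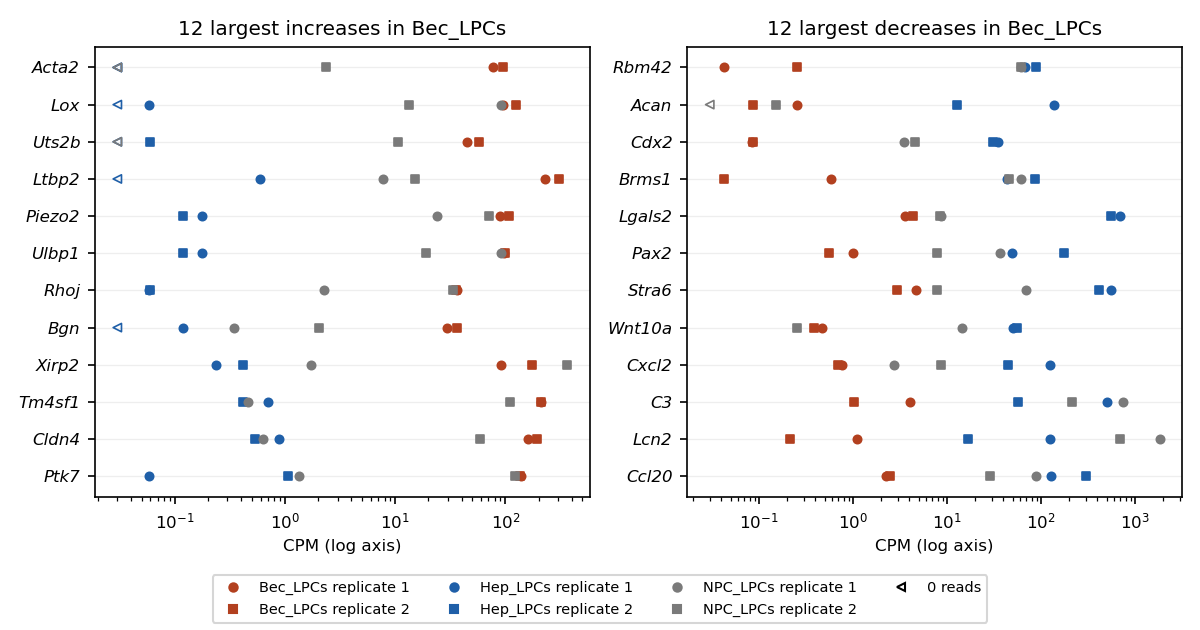
CPM on a log axis for the 12 counted-alike genes with the largest increases (left) and decreases (right) in Bec_LPCs, 1 symbol per library, with open triangles for 0 reads. The Bec_LPCs and Hep_LPCs libraries do not overlap for any of the 24 genes, while the NPC_LPCs libraries vary from gene to gene. They lie above both groups in 1 library for Xirp2 and C3 and in both for Lcn2, and below both groups in 1 library for Acan and Wnt10a.

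Many collagen and contractile genes were higher in Bec_LPCs than in Hep_LPCs. The collagen list summed to 3059 and 3236 CPM in Bec_LPCs, 933 and 1610 CPM in Hep_LPCs and 3231 and 5178 CPM in NPC_LPCs. For the contractile list the sums were 4139 and 4550 CPM, 2860 and 2492 CPM and 4568 and 8567 CPM in the same order. The summed levels were thus not particular to Bec_LPCs. Of the collagen chains, 12 of 24 tested members were called higher and 0 lower (50%, against 33.3% over all genes). Their median log2 fold change was 1.93, against 0.03 over all genes. The fibrillar chains Col1a2, at 22.8 and 29.1 CPM in Bec_LPCs and 0 reads in both Hep_LPCs libraries (at least 146-fold higher), Col3a1, at 15.6 and 15.2 CPM in Bec_LPCs and 0 reads in both Hep_LPCs libraries (at least 87.04-fold higher), and Col1a1, at 63.8 and 76.96 CPM in Bec_LPCs and 4.28 and 1.902 CPM in Hep_LPCs (4.51 ± 0.77), were at 0 reads or low in Hep_LPCs. Col12a1, a collagen that associates with fibrils, was at 137 and 134 CPM in Bec_LPCs and 8.73 and 8.98 CPM in Hep_LPCs (log2 fold change 3.94 ± 0.46, adjusted p = 0.00431). Col16a1, of the same class, was at 70.6 and 74.2 CPM in Bec_LPCs and 2.93 and 6.78 CPM in Hep_LPCs (log2 fold change 3.90 ± 0.44, adjusted p = 0.00415). Both Hep_LPCs libraries expressed them, at a level well below Bec_LPCs. Col27a1, a fibrillar collagen, was at 165 and 155 CPM in Bec_LPCs and 31.1 and 36.97 CPM in Hep_LPCs (log2 fold change 2.23 ± 0.18, adjusted p = 0.00189). The basement membrane chains Col4a1 (1.79 ± 0.41), Col4a2 (1.60 ± 0.42) and Col4a5 (2.08 ± 0.54) were higher as well, while Col18a1 (-0.58, adjusted p = 0.174) and Col5a1 (0.64, adjusted p = 0.317) were not called. Of these 12 calls 3 and 3 held without Bec_LPCs replicate 1 and replicate 2, and 5 and 7 without Hep_LPCs replicate 1 and replicate 2. Col12a1, Col16a1 and Col27a1 kept the call in each of the 6 fits that left out 1 library.

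Of the smooth muscle and contractile genes, 6 of 15 tested members were called higher and 1 lower (median 1.64). The share called was 46.7%, against 33.3% over all genes. Besides Acta2, Myh11, smooth muscle myosin heavy chain, was at 4.39 and 5.92 CPM in Bec_LPCs and 0 reads in both Hep_LPCs libraries (at least 29.1-fold higher). Actg2, enteric smooth muscle actin, was at 6.72 and 7.73 CPM in Bec_LPCs and 0 reads in both Hep_LPCs libraries (at least 40.8-fold higher). Cnn1, calponin, was at 3.17 and 4.81 CPM in Bec_LPCs and 0.0586 and 0.357 CPM in Hep_LPCs (4.23 ± 0.84). Lmod1 and Myl9 were the other members called higher. Mylk, myosin light chain kinase, went the other way at 15.6 and 15.6 CPM in Bec_LPCs and 92.98 and 46.4 CPM in Hep_LPCs (log2 fold change -2.16 ± 0.41, adjusted p = 0.0144), and Tagln (1.14 and 1.46 CPM in Bec_LPCs and 0.645 and 0.178 CPM in Hep_LPCs; adjusted p = 0.289) was not called. None of these 7 calls held without Bec_LPCs replicate 1 or without replicate 2 (0 of 7 in each), against 6 of 7 without either Hep_LPCs library. Of 7 stellate cell and portal fibroblast markers tested, 4 were called higher and 1 lower, of which 1 call held without Bec_LPCs replicate 1 and 1 without replicate 2. For these markers the share called was 71.4%, against 33.3% over all genes. Among the markers Pdgfrb, a growth factor receptor of pericytes and stellate cells, was at 4.44 and 5.37 CPM in Bec_LPCs and 1 and 0 reads in Hep_LPCs, 166-fold higher with a counting interval of 29.5 to 6582 (adjusted p = 0.007795). Lrat, which defines quiescent stellate cells, was at 0 in all 4 libraries and Des (2.11 and 2.58 CPM in Bec_LPCs and 0.821 and 1.43 CPM in Hep_LPCs; adjusted p = 0.326) was not called. How much of the contractile and collagen difference such cells could carry was not tested.

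Several matrix glycoproteins were higher in Bec_LPCs too. Fn1, fibronectin (chromosome 1, 71585520 to 71653200), was at 7459 and 8202 CPM in Bec_LPCs and 1697 and 1517 CPM in Hep_LPCs (log2 fold change 2.28 ± 0.20, adjusted p = 0.00223). Tnc, tenascin-C, was at 1331 and 1572 CPM in Bec_LPCs and 57.5 and 87.5 CPM in Hep_LPCs (log2 fold change 4.32 ± 0.29, adjusted p = 0.00118). Fbln2, fibulin-2, was at 3690.4 and 3972 CPM in Bec_LPCs and 564 and 717 CPM in Hep_LPCs (log2 fold change 2.58 ± 0.25, adjusted p = 0.00285). In NPC_LPCs these 3 genes were also high: 8095 and 9700.2 CPM of Fn1, 2165 and 1835 CPM of Tnc and 2717 and 3771 CPM of Fbln2. Postn, periostin, was at 3.17 and 3.86 CPM in Bec_LPCs and 0 reads in both Hep_LPCs libraries (at least 19.9-fold higher). Tgfbi, a TGF-beta-induced matrix protein, went the other way, at 0 reads in both Bec_LPCs libraries and 14.5 and 4.22 CPM in Hep_LPCs (at least 73.2-fold lower). Of the mesenchymal transition genes 5 of 18 tested members were called higher and 3 lower (median 0.24), or 44.4% against 33.3% over all genes. Snai1, a repressor of epithelial genes, was among the lower ones at 2.24 and 1.24 CPM in Bec_LPCs and 8.09 and 10.1 CPM in Hep_LPCs (log2 fold change -2.38 ± 0.44, adjusted p = 0.0138). Vim, vimentin, was at 1764 and 1816 CPM in Bec_LPCs and 2101 and 2279.8 CPM in Hep_LPCs (adjusted p = 0.24), and Zeb1 (0.32) and Twist1 (-1.80) were not called either. Among proteases and crosslinkers 5 of 33 tested members were called higher and 1 lower, or 18.2%, less often than the 33.3% over all genes. Mmp12, macrophage elastase, was at 13.6 and 12.1 CPM in Bec_LPCs and 0 and 1 reads in Hep_LPCs, 436-fold higher with a counting interval of 77.9 to 17239 (adjusted p = 0.00383). Adamts5, an aggrecan-cleaving protease, was at 13.3 and 14.3 CPM in Bec_LPCs and 0.117 and 0.535 CPM in Hep_LPCs (log2 fold change 5.38 ± 0.85, adjusted p = 0.00922), and Loxl4, a lysyl oxidase-like enzyme, was lower, at 24.9 and 28.5 CPM in Bec_LPCs and 58.7 and 163 CPM in Hep_LPCs (log2 fold change -2.05 ± 0.47, adjusted p = 0.0238). Fn1, Tnc, Fbln2 and Mmp12 kept the call in each of the 6 fits that left out 1 library. Postn, Tgfbi, Snai1 and Loxl4 lost the call without Bec_LPCs replicate 1 (adjusted p from 0.0654 to 0.135). Postn, Tgfbi, Snai1, Adamts5 and Loxl4 lost it without Bec_LPCs replicate 2 (adjusted p from 0.0516 to 0.117).

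Of the integrins and laminins, receptors and ligands of the basement membrane, 9 of 28 tested members were called higher and 3 lower (median 0.41). The share called was 42.9%, against 33.3% over all genes. Itgav, which pairs with several beta chains to bind fibronectin and latent TGF-beta, was at 410.4 and 408 CPM in Bec_LPCs and 181 and 135 CPM in Hep_LPCs (log2 fold change 1.37 ± 0.21, adjusted p = 0.00872). Lama4, a laminin alpha chain, was at 59.96 and 48.8 CPM in Bec_LPCs and 7.504 and 8.797 CPM in Hep_LPCs (log2 fold change 2.74 ± 0.44, adjusted p = 0.009396). Itgb1 (1.58 ± 0.46), Itga3 (1.47 ± 0.37) and Itga2 (1.21 ± 0.36) were higher with them. These chains bind fibronectin, laminin and collagen. Itgb6, the epithelial partner of Itgav, was lower at 10.5 and 12.9 CPM in Bec_LPCs and 74.2 and 138 CPM in Hep_LPCs (log2 fold change -3.18 ± 0.53, adjusted p = 0.0107), as was Itga7, a laminin receptor chain, at 1.23 and 1.55 CPM in Bec_LPCs and 37.6 and 45.6 CPM in Hep_LPCs (log2 fold change -4.90 ± 0.74, adjusted p = 0.00826). Itgav and Itgb6, partners in 1 integrin, differed in opposite directions. Itgav, Lama4, Itgb6, Itga7, Itgb1, Itga3 and Itga2 lost the call without Bec_LPCs replicate 1 (adjusted p from 0.0572 to 0.1599). Itgav, Itgb6, Itga7, Itgb1, Itga3 and Itga2 lost it without Bec_LPCs replicate 2 (adjusted p from 0.0616 to 0.1799). Itgb1 and Itga3 lost it without Hep_LPCs replicate 1 (adjusted p from 0.0598 to 0.174). Itgb1, Itga3 and Itga2 lost it without Hep_LPCs replicate 2 (adjusted p from 0.102 to 0.112). Itga2 lost it without NPC_LPCs replicate 1 (adjusted p = 0.0537). Itga2 lost it without NPC_LPCs replicate 2 (adjusted p = 0.0533).

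Several epithelial junction genes were nearly silent in Hep_LPCs and present in Bec_LPCs. Of 31 tested members, 9 were called higher and 3 lower (median 0.59), or 38.7% against 33.3% over all genes. A sort, for Epcam, is stated for Bec_LPCs alone, and its part in these genes was not tested. Esrp1, an epithelial splicing regulator, was at 19.4 and 23.99 CPM in Bec_LPCs and 1 and 2 reads in Hep_LPCs, 245-fold higher with a counting interval of 83.5 to 1189 (adjusted p = 0.00189). Its paralog Esrp2 was lower in Bec_LPCs, at 27.1 and 25.2 CPM in Bec_LPCs and 59.8 and 57.5 CPM in Hep_LPCs (log2 fold change -1.16 ± 0.25, adjusted p = 0.0198), so the pair differed in opposite directions. Cldn7, claudin-7, was at 13.99 and 22.7 CPM in Bec_LPCs and 0 and 2 reads in Hep_LPCs, 311-fold higher with a counting interval of 85.7 to 2569 (adjusted p = 0.00629). Cldn1, claudin-1, was at 9.38 and 14.8 CPM in Bec_LPCs and 0.528 and 0.297 CPM in Hep_LPCs (log2 fold change 4.85 ± 0.52, adjusted p = 0.00363). Ap1m2, an adaptor of epithelial sorting, was at 5.75 and 9.61 CPM in Bec_LPCs and 0 reads in both Hep_LPCs libraries (at least 43.4-fold higher), and Spint1 (4.72 ± 0.90), Rab25 (4.49 ± 1.14), Marveld3 (3.05 ± 0.53) and Cldn2 (1.81 ± 0.47) completed the higher group with Cldn4. Lsr, a tricellular junction receptor, was lower at 68.3 and 67.3 CPM in Bec_LPCs and 292 and 371 CPM in Hep_LPCs (log2 fold change -2.29 ± 0.19, adjusted p = 0.00217). Cgn, the tight junction protein cingulin, whose gene has a near-identical copy, was the other member called lower, at 63.04 and 68.98 CPM in Bec_LPCs and 156 and 145 CPM in Hep_LPCs (log2 fold change -1.19 ± 0.17, adjusted p = 0.006804). Of the general junction genes Cdh1, E-cadherin, was at 663 and 603 CPM in Bec_LPCs and 846 and 845 CPM in Hep_LPCs (adjusted p = 0.607) and was not called, and Ocln (-0.32), Tjp1 (-0.78) and Jup (0.18) were not called either. Grhl2, a transcription factor of epithelial junction genes, was at 6.59 and 7.64 CPM in Bec_LPCs and 0.176 and 0.654 CPM in Hep_LPCs (log2 fold change 4.08 ± 0.69, adjusted p = 0.0112), and Elf3, an epithelial factor, was lower at 3.63 and 3.73 CPM in Bec_LPCs and 15.6 and 44.4 CPM in Hep_LPCs (log2 fold change -3.02 ± 0.55, adjusted p = 0.0133). The 2 factors of epithelial identity thus differed in opposite directions. Of 13 biliary and epithelial transcription factors 3 were called higher and 4 lower, or 53.8% against 33.3% over all genes. Sox4, a factor of duct development, was at 645 and 640.2 CPM in Bec_LPCs and 231 and 195 CPM in Hep_LPCs (log2 fold change 1.59 ± 0.17, adjusted p = 0.00335). Klf5, a factor of proliferating gut and duct epithelium, was at 68.1 and 60.05 CPM in Bec_LPCs and 137 and 116 CPM in Hep_LPCs (log2 fold change -0.98 ± 0.19, adjusted p = 0.0151). Esrp1, Cldn7, Cldn1, Lsr and Sox4 kept the call in each of the 6 fits that left out 1 library. Esrp2, Ap1m2, Spint1, Rab25, Marveld3, Cldn2, Cgn, Grhl2, Elf3 and Klf5 lost the call without either Bec_LPCs library (adjusted p from 0.0529 to 0.151). Esrp2 and Spint1 lost it without Hep_LPCs replicate 1 (adjusted p from 0.0537 to 0.0594). Cldn2 lost it without NPC_LPCs replicate 1 (adjusted p = 0.0536). Cldn2 lost it without NPC_LPCs replicate 2 (adjusted p = 0.0536).

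Keratins of simple epithelium did not distinguish the groups by test. Krt19 was at 472 and 442 CPM in Bec_LPCs and 1514 and 933 CPM in Hep_LPCs (log2 fold change -1.42, adjusted p = 0.0567). Krt7 was at 299 and 365 CPM in Bec_LPCs and 109 and 175 CPM in Hep_LPCs (1.23, adjusted p = 0.322). Both keratins of bile duct cells were thus present in Hep_LPCs. The libraries of the groups did not overlap for either, as for 77.6% of all genes tested. Krt8 was at 1598 and 1658 CPM in Bec_LPCs and 2418 and 4250.1 CPM in Hep_LPCs (adjusted p = 0.107; it has a near-identical copy). Krt18 was at 1856 and 1852 CPM in Bec_LPCs and 1902 and 3923 CPM in Hep_LPCs (adjusted p = 0.2901). Of 11 keratins 36.4% were called, against 33.3% over all genes. Of these keratins, 1 was called higher, Krt17 of stressed and basal epithelium, at 5.66 and 7.898 CPM in Bec_LPCs and 0 reads in both Hep_LPCs libraries (at least 38.3-fold higher), and 3 lower. The lower ones were Krt20, a keratin of gut and urothelium, at 32.4 and 35.5 CPM in Bec_LPCs and 207 and 239 CPM in Hep_LPCs (log2 fold change -2.72 ± 0.48, adjusted p = 0.0124), Krt80 (-1.86 ± 0.53) and Krt15 (-3.28 ± 0.87). With limma-voom Krt80 was not called (adjusted p = 0.0524). Krt17, Krt20, Krt80 and Krt15 lost the call without either Bec_LPCs library (adjusted p from 0.0598 to 0.307). Krt80 and Krt15 lost it without Hep_LPCs replicate 1 (adjusted p from 0.113 to 0.1598). Krt15 lost it without Hep_LPCs replicate 2 (adjusted p = 0.0591).

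Bile duct markers were called about as often as all genes tested, 31.8% against 33.3%. Of 22 tested, with Epcam not among them, 5 were called higher and 2 lower (median 0.51). Ano1, a chloride channel of duct cells, was at 1079 and 1057 CPM in Bec_LPCs and 246 and 278 CPM in Hep_LPCs (log2 fold change 2.03 ± 0.21, adjusted p = 0.003201). Pkhd1, fibrocystin, was at 181 and 171 CPM in Bec_LPCs and 28.4 and 30.02 CPM in Hep_LPCs (log2 fold change 2.59 ± 0.37, adjusted p = 0.00738). Muc1, an apical mucin, was at 2.66 and 3.13 CPM in Bec_LPCs and 0.645 and 0.416 CPM in Hep_LPCs (log2 fold change 2.43 ± 0.54, adjusted p = 0.0213). These 3 genes serve secretion and the apical surface. Sox9, the duct and progenitor transcription factor, was at 151 and 145 CPM in Bec_LPCs and 115 and 122 CPM in Hep_LPCs (adjusted p = 0.642). Spp1, osteopontin, was at 3118 and 2422 CPM in Bec_LPCs and 3192 and 954 CPM in Hep_LPCs (adjusted p = 0.625), with 1 Hep_LPCs library level with Bec_LPCs and 1 below it. Cftr, the chloride channel of bile secretion, was at 1.099 and 1.202 CPM in Bec_LPCs and 1.47 and 0.119 CPM in Hep_LPCs (adjusted p = 0.708). Prom1, a progenitor surface protein, was at 123 and 99.1 CPM in Bec_LPCs and 11.02 and 18.6 CPM in Hep_LPCs, not called (adjusted p = 0.115). Cd24a, which has a near-identical copy, was at 694 and 613 CPM in Bec_LPCs and 1044 and 1391 CPM in Hep_LPCs (adjusted p = 0.0481). Sox9 and osteopontin were therefore held by both cell types. Tspan8, a tetraspanin, was lower at 221 and 189 CPM in Bec_LPCs and 394 and 652 CPM in Hep_LPCs (log2 fold change -1.35 ± 0.29, adjusted p = 0.0201). Epcam, at 59.03 and 65.8 CPM in Bec_LPCs and 0.352 and 1.84 CPM in Hep_LPCs (log2 fold change 5.82 ± 0.83, adjusted p = 0.00714), was the sorting antigen of Bec_LPCs and is no finding there. Ano1 and Pkhd1 kept the call in each of the 6 fits that left out 1 library. Muc1, Tspan8 and Cd24a lost the call without either Bec_LPCs library (adjusted p from 0.106 to 0.253). Cd24a lost it without Hep_LPCs replicate 1 (adjusted p = 0.0583). Cd24a lost it without Hep_LPCs replicate 2 (adjusted p = 0.138).

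Hepatocyte transcription factors were higher in Hep_LPCs more often than lower. Of 15 tested, 7 were called lower and 1 higher in Bec_LPCs (median -1.21), or 53.3% against 33.3% over all genes. Hnf4a, the factor that maintains hepatocyte identity (chromosome 2, 163506808 to 163572910), was at 126 and 104 CPM in Bec_LPCs and 248 and 263 CPM in Hep_LPCs (log2 fold change -1.16 ± 0.29, adjusted p = 0.0308). Both cell types thus held it, at a higher level in Hep_LPCs. Nr1h4, the bile acid receptor FXR, was at 8.03 and 7.73 CPM in Bec_LPCs and 23.3 and 29.1 CPM in Hep_LPCs (log2 fold change -1.73 ± 0.24, adjusted p = 0.00645). Cebpa, a factor of hepatocyte maturation, was at 7.39 and 7.38 CPM in Bec_LPCs and 31.3 and 23.1 CPM in Hep_LPCs (log2 fold change -1.88 ± 0.36, adjusted p = 0.0147). Foxa2 was at 50.1 and 45.5 CPM in Bec_LPCs and 95.2 and 127 CPM in Hep_LPCs (log2 fold change -1.22 ± 0.36, adjusted p = 0.0476). Foxa3 was at 0.803 and 0.172 CPM in Bec_LPCs and 5.28 and 6.895 CPM in Hep_LPCs (log2 fold change -3.62 ± 0.78, adjusted p = 0.0203). Onecut2, a factor of the fetal hepatoblast and duct, was the member called higher, at 549 and 440.5 CPM in Bec_LPCs and 9.56 and 40.7 CPM in Hep_LPCs (log2 fold change 4.30 ± 0.70, adjusted p = 0.00972). Its relative Onecut1 (1.61 and 0.816 CPM in Bec_LPCs and 1.64 and 1.01 CPM in Hep_LPCs; adjusted p = 0.9099) was not called. Hnf4a, Nr1h4, Cebpa, Foxa2, Foxa3 and Onecut2 lost the call without either Bec_LPCs library (adjusted p from 0.0554 to 0.207). Hnf4a, Cebpa and Foxa2 lost it without Hep_LPCs replicate 1 (adjusted p from 0.0536 to 0.0823). Hnf4a, Foxa2 and Foxa3 lost it without Hep_LPCs replicate 2 (adjusted p from 0.0546 to 0.152).

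Albumin and its fetal counterpart were low in both groups. Alb, albumin, was at 0.972 and 0.429 CPM in Bec_LPCs and 2.404 and 0.119 CPM in Hep_LPCs (adjusted p = 0.613). Ttr, transthyretin, was at 1.86 and 1.12 CPM in Bec_LPCs and 1.29 and 1.605 CPM in Hep_LPCs (adjusted p = 0.968). Afp, the fetal albumin homologue, was at 5.07 and 5.92 CPM in Bec_LPCs and 4.22 and 4.81 CPM in Hep_LPCs (adjusted p = 0.851). Cyp2e1, a marker of mature hepatocytes, was at 0 in all 4 libraries. The 6 defining markers of hepatocytes were thus near 0 in Hep_LPCs too, apart from Hnf4a. Of 17 plasma protein genes tested, 2 were called higher and 4 lower in Bec_LPCs (median -0.84), or 35.3% against 33.3% over all genes. Not all plasma protein genes were low. Apob had a log2 mean CPM of 11.843 over the 4 libraries and was not called (-0.508). Cp had a log2 mean CPM of 9.024 and was called higher (1.087), a call not kept in each of the 6 fits that left out 1 library. Rbp4, the retinol carrier, was at 26.8 and 22.5 CPM in Bec_LPCs and 519 and 514 CPM in Hep_LPCs (log2 fold change -4.39 ± 0.30, adjusted p = 0.00137). Hpx, hemopexin, was at 1.39 and 1.29 CPM in Bec_LPCs and 50.7 and 45.4 CPM in Hep_LPCs (log2 fold change -5.16 ± 0.39, adjusted p = 0.00172). Apoa1, the main HDL protein, was at 0 and 1 reads in Bec_LPCs and 5.57 and 0.951 CPM in Hep_LPCs, 154-fold lower with a counting interval of 27.1 to 6131 (adjusted p = 0.0291). In the other direction, Ambp, the alpha-1-microglobulin precursor, was at 23.8 and 17.7 CPM in Bec_LPCs and 0.293 and 1.13 CPM in Hep_LPCs (log2 fold change 4.86 ± 0.71, adjusted p = 0.00765). Among hepatocyte metabolic enzymes 0 of 8 tested members were called higher and 2 lower, or 25% against 33.3% over all genes. Gls2, liver glutaminase, was at 1.94 and 1.55 CPM in Bec_LPCs and 32.2 and 13.4 CPM in Hep_LPCs (log2 fold change -3.70 ± 0.51, adjusted p = 0.00663). Cyp3a13 was at 14.4 and 11.2 CPM in Bec_LPCs and 28.02 and 57.1 CPM in Hep_LPCs (log2 fold change -1.73 ± 0.39, adjusted p = 0.0225). Rbp4 and Hpx kept the call in each of the 6 fits that left out 1 library. Apoa1, Ambp, Gls2 and Cyp3a13 lost the call without Bec_LPCs replicate 1 (adjusted p from 0.0541 to 0.158). Apoa1, Gls2 and Cyp3a13 lost it without Bec_LPCs replicate 2 (adjusted p from 0.0618 to 0.143). Apoa1 lost it without Hep_LPCs replicate 1 (adjusted p = 0.0937).

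**Figure D3:**
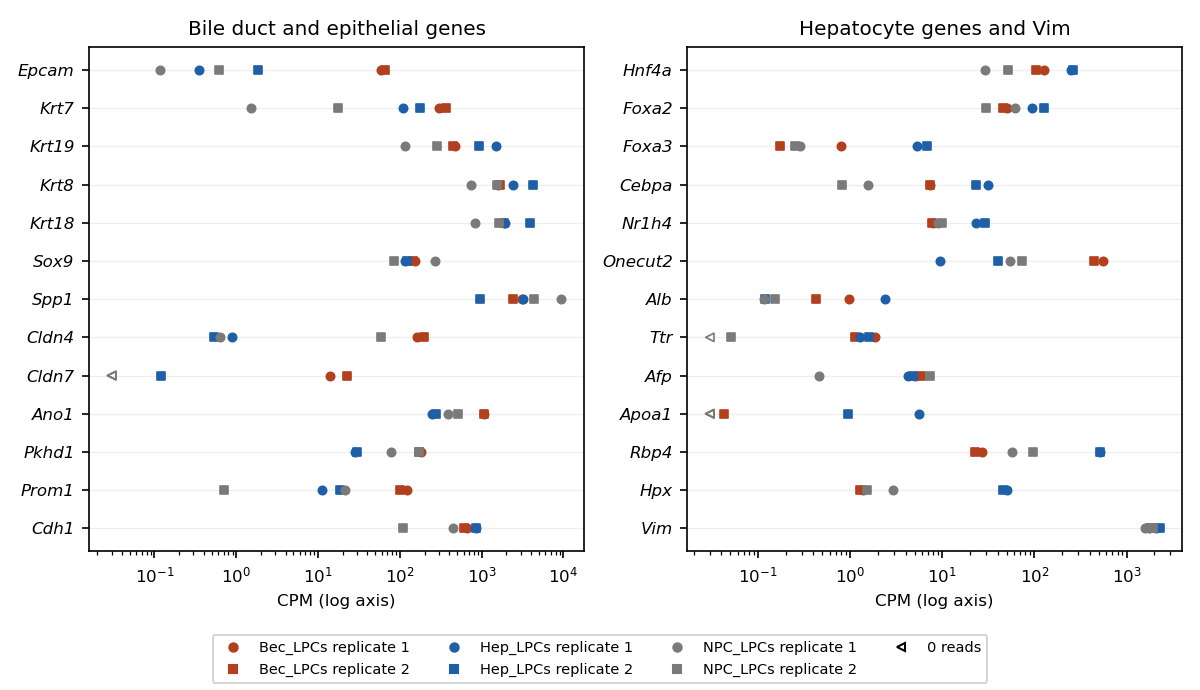
CPM on a log axis for bile duct and epithelial genes (left) and hepatocyte genes and Vim (right), 1 symbol per library, with open triangles for 0 reads. Sox9, Cdh1 and Vim lie close together in Bec_LPCs and Hep_LPCs, Cldn4, Cldn7 and Ano1 are higher in Bec_LPCs, and Hnf4a, Rbp4 and Hpx are higher in Hep_LPCs.

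In the TGF-beta family, activin subunits and the antagonists Grem1 and Fst were higher in Bec_LPCs. Of 38 members tested, 15 were called higher and 5 lower (median 0.34), or 52.6% against 33.3% over all genes. Among ligands, Inhba, which forms activin A, was at 458 and 529.8 CPM in Bec_LPCs and 4.92 and 10.05 CPM in Hep_LPCs (log2 fold change 6.04 ± 0.64, adjusted p = 0.00354). Inhbb, which forms activin B, was at 21.3 and 23.01 CPM in Bec_LPCs and 0.176 and 0.238 CPM in Hep_LPCs (log2 fold change 6.70 ± 0.85, adjusted p = 0.00535). Inha, the inhibin subunit that opposes activin, was at 2.37 and 2.66 CPM in Bec_LPCs and 0 and 1 reads in Hep_LPCs (85.1-fold, counting interval 14.98 to 3390.4, higher), and Bmp4 was lower, at 8.15 and 5.45 CPM in Bec_LPCs and 47.1 and 44.2 CPM in Hep_LPCs (log2 fold change -2.75 ± 0.27, adjusted p = 0.002999). Tgfb1 (-0.20), Tgfb2 (-0.26) and Bmp2 (-0.31) were not called. Among extracellular antagonists, Grem1, which binds BMPs, was at 37.7 and 42.7 CPM in Bec_LPCs and 0.234 and 0.416 CPM in Hep_LPCs (log2 fold change 6.92 ± 0.53, adjusted p = 0.00173), and Fst, follistatin, which binds activin, at 51.4 and 62.02 CPM in Bec_LPCs and 14.2 and 14.6 CPM in Hep_LPCs (log2 fold change 1.97 ± 0.19, adjusted p = 0.00289). Chrd, chordin, was lower at 0.338 and 0.129 CPM in Bec_LPCs and 1.64 and 2.44 CPM in Hep_LPCs (-3.09 ± 0.83). Activin subunits and the activin antagonist were therefore both higher in the same libraries. Of the receptors, Bmpr1a (1.06 ± 0.18), Bmpr2 (1.35 ± 0.20), Tgfbr1 (0.97 ± 0.29) and Acvr1 (0.72 ± 0.17) were called higher and the co-receptor Tgfbr3 (-2.70 ± 0.59) lower. Of the BMP target genes Id1 (-1.40 ± 0.31) and Id4 (-4.48 ± 0.66) were called lower, and Id2 (-0.39), Id3 (-0.81), Smad6 (-0.56) and Smad7 (0.68) were not called. Inhba, Inhbb, Bmp4, Grem1 and Fst kept the call in each of the 6 fits that left out 1 library. Inha, Chrd, Bmpr1a, Bmpr2, Tgfbr1, Acvr1, Tgfbr3, Id1 and Id4 lost the call without either Bec_LPCs library (adjusted p from 0.0625 to 0.283). Chrd, Tgfbr1 and Tgfbr3 lost it without Hep_LPCs replicate 1 (adjusted p from 0.0605 to 0.105). Chrd and Id1 lost it without Hep_LPCs replicate 2 (adjusted p from 0.05196 to 0.0985). Tgfbr1 lost it without NPC_LPCs replicate 1 (adjusted p = 0.0563). Tgfbr1 lost it without NPC_LPCs replicate 2 (adjusted p = 0.0556).

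Several growth factor receptors were higher in Bec_LPCs. Fgfr1 was at 55.1 and 54.6 CPM in Bec_LPCs and 7.03 and 9.15 CPM in Hep_LPCs (log2 fold change 2.76 ± 0.24, adjusted p = 0.00223). Fgfr2, a receptor of epithelium for FGF7 and FGF10, was at 104 and 83.7 CPM in Bec_LPCs and 10.9 and 14.1 CPM in Hep_LPCs (log2 fold change 2.90 ± 0.24, adjusted p = 0.00203). Egfr, the EGF receptor, was at 269.7 and 293 CPM in Bec_LPCs and 105 and 114 CPM in Hep_LPCs (log2 fold change 1.36 ± 0.17, adjusted p = 0.00489). Erbb3, a receptor for neuregulins, was at 7.31 and 9.4 CPM in Bec_LPCs and 1.29 and 0.416 CPM in Hep_LPCs (3.28 ± 0.86). Each of these receptors was read in Hep_LPCs at a lower level. The ligand Fgf2 was at 10.7 and 13.2 CPM in Bec_LPCs and 0 and 1 reads in Hep_LPCs, 405-fold higher with a counting interval of 72.3 to 16013 (adjusted p = 0.0178). Fgfbp1, which carries FGFs, was lower, at 1.099 and 0.901 CPM in Bec_LPCs and 61.8 and 24.4 CPM in Hep_LPCs (log2 fold change -5.42 ± 0.55, adjusted p = 0.00329), as were the ligands Fgf1 (-3.07 ± 0.43), Fgf18 (-2.82 ± 0.48) and Tgfa (-0.91 ± 0.26). Altogether 6 of 23 tested members of this list were called higher and 6 lower, or 52.2% against 33.3% over all genes. Met, the receptor of hepatocyte growth factor, was not called (273 and 256 CPM in Bec_LPCs and 285 and 176 CPM in Hep_LPCs; adjusted p = 0.592). The list's median of 0.23 became -0.43 with genes of at least 10 CPM in 2 libraries and -0.01 without Bec_LPCs replicate 1. Fgfr1, Fgfr2 and Fgfbp1 kept the call in each of the 6 fits that left out 1 library. Egfr, Erbb3, Fgf2, Fgf18 and Tgfa lost the call without Bec_LPCs replicate 1 (adjusted p from 0.0508 to 0.185). Egfr, Erbb3, Fgf2, Fgf1, Fgf18 and Tgfa lost it without Bec_LPCs replicate 2 (adjusted p from 0.0554 to 0.221). Erbb3, Fgf2 and Tgfa lost it without Hep_LPCs replicate 1 (adjusted p from 0.0582 to 0.0803). Erbb3 and Fgf2 lost it without Hep_LPCs replicate 2 (adjusted p from 0.0613 to 0.102). Tgfa lost it without NPC_LPCs replicate 1 (adjusted p = 0.0576). Tgfa lost it without NPC_LPCs replicate 2 (adjusted p = 0.05997).

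In the Notch pathway the ligand Jag1 was at 648 and 672 CPM in Bec_LPCs and 100.2 and 69.2 CPM in Hep_LPCs (log2 fold change 2.96 ± 0.34, adjusted p = 0.00429), and the receptors Notch2, at 201 and 189.9 CPM in Bec_LPCs and 108 and 110.0 CPM in Hep_LPCs (log2 fold change 0.84 ± 0.20, adjusted p = 0.0262), and Notch3, at 21.97 and 21.4 CPM in Bec_LPCs and 6.33 and 2.73 CPM in Hep_LPCs (log2 fold change 2.26 ± 0.55, adjusted p = 0.0287), were also higher in Bec_LPCs. Notch1 was lower at 93.8 and 82.7 CPM in Bec_LPCs and 289.9 and 166 CPM in Hep_LPCs (log2 fold change -1.37 ± 0.40, adjusted p = 0.04496), as were the Notch target Hes1 at 83.96 and 74.98 CPM in Bec_LPCs and 138 and 209.9 CPM in Hep_LPCs (log2 fold change -1.13 ± 0.28, adjusted p = 0.0303) and the feedback gene Nrarp at 3.72 and 2.79 CPM in Bec_LPCs and 13.2 and 16.8 CPM in Hep_LPCs (log2 fold change -2.21 ± 0.53, adjusted p = 0.0275). Receptors and targets thus did not share a direction, with 3 of 16 members called higher and 4 lower (43.8%, against 33.3% over all genes). The list's median, -0.28, turned to 0.16 without Hep_LPCs replicate 2. Jag1 kept the call in each of the 6 fits that left out 1 library. Notch2, Notch3, Notch1, Hes1 and Nrarp lost the call without either Bec_LPCs library (adjusted p from 0.114 to 0.199). Notch2, Notch1 and Nrarp lost it without Hep_LPCs replicate 1 (adjusted p from 0.0664 to 0.169). Notch2, Notch3, Hes1 and Nrarp lost it without Hep_LPCs replicate 2 (adjusted p from 0.0619 to 0.0844).

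In the WNT pathway the ligand Wnt5a, which acts mainly outside beta-catenin, was at 80.8 and 83.96 CPM in Bec_LPCs and 7.504 and 12.6 CPM in Hep_LPCs (log2 fold change 3.03 ± 0.47, adjusted p = 0.008697). Lgr6, a receptor for R-spondins, was at 78.6 and 94.99 CPM in Bec_LPCs and 5.57 and 4.399 CPM in Hep_LPCs (log2 fold change 4.12 ± 0.24, adjusted p = 9.00e-04). Several feedback and target genes of beta-catenin signalling were lower: Axin2 was at 30.2 and 27.4 CPM in Bec_LPCs and 51.4 and 55.2 CPM in Hep_LPCs (log2 fold change -0.89 ± 0.21, adjusted p = 0.0252). Sp5 was at 3.803 and 4.08 CPM in Bec_LPCs and 23.1 and 22.2 CPM in Hep_LPCs (log2 fold change -2.52 ± 0.35, adjusted p = 0.00673). Rnf43, which removes WNT receptors, was at 10.8 and 9.23 CPM in Bec_LPCs and 146 and 94.04 CPM in Hep_LPCs (log2 fold change -3.58 ± 0.89, adjusted p = 0.0295). Tcf7 was at 10.2 and 10.9 CPM in Bec_LPCs and 26.1 and 18.8 CPM in Hep_LPCs (-1.09 ± 0.31). Lgr5, another such target, was at 3.17 and 3.82 CPM in Bec_LPCs and 40.6 and 7.79 CPM in Hep_LPCs and was not called (adjusted p = 0.1097), and Lef1 (-1.41) and Znrf3 (0.43) were not called. Of 27 members tested 5 were called higher and 7 lower, or 44.4% against 33.3% over all genes. The median of 0.43 became -0.86 with genes of at least 10 CPM in 2 libraries. Wnt5a and Lgr6 kept the call in each of the 6 fits that left out 1 library. Axin2, Sp5, Rnf43 and Tcf7 lost the call without either Bec_LPCs library (adjusted p from 0.0645 to 0.249). Axin2, Rnf43 and Tcf7 lost it without Hep_LPCs replicate 1 (adjusted p from 0.0532 to 0.137). Axin2 and Rnf43 lost it without Hep_LPCs replicate 2 (adjusted p from 0.05998 to 0.0622).

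YAP and TEAD targets, genes that follow cell spreading and tension, were rarely called, at 16.7% against 33.3% over all genes. Of 24 tested 3 were higher and 1 lower (median 0.19, or -0.01 among genes clear of every annotated neighbour). The classic targets Ccn1 (630.0 and 693 CPM in Bec_LPCs and 478 and 626 CPM in Hep_LPCs; adjusted p = 0.7898), Ccn2 (1678 and 1691 CPM in Bec_LPCs and 674 and 1395 CPM in Hep_LPCs; adjusted p = 0.323) and Ankrd1 (948 and 1028 CPM in Bec_LPCs and 849.6 and 208 CPM in Hep_LPCs; adjusted p = 0.4195) were not called. Rbms3, an RNA-binding protein, was at 33.5 and 29.4 CPM in Bec_LPCs and 0.0586 and 0.178 CPM in Hep_LPCs (log2 fold change 7.98 ± 0.48, adjusted p = 9.14e-04). Ptpn14, a phosphatase that binds YAP, was at 498 and 479 CPM in Bec_LPCs and 279.7 and 158 CPM in Hep_LPCs (log2 fold change 1.16 ± 0.29, adjusted p = 0.0295). Rbms3 kept the call in each of the 6 fits that left out 1 library. Ptpn14 lost the call without either Bec_LPCs library (adjusted p from 0.131 to 0.145).

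Several genes of polycystic disease were higher in Bec_LPCs. Pkd1, polycystin-1, was at 104 and 104 CPM in Bec_LPCs and 38.3 and 30.4 CPM in Hep_LPCs (log2 fold change 1.60 ± 0.20, adjusted p = 0.00506). Pkd2, its channel partner, was at 183 and 164 CPM in Bec_LPCs and 41.5 and 53.3 CPM in Hep_LPCs (log2 fold change 1.87 ± 0.19, adjusted p = 0.003201), beside Pkhd1 above. Nphp4, a transition zone protein, was at 4.35 and 6.09 CPM in Bec_LPCs and 0 reads in both Hep_LPCs libraries (at least 29.5-fold higher) and at 4.74 and 6.26 CPM in NPC_LPCs, so it was at 0 in the Hep_LPCs libraries and present in both other groups. Intraflagellar transport genes did not share a direction: Ift140 (1.40 ± 0.23), Ift122 (0.99 ± 0.22) and Ift20 (1.27 ± 0.30) were called higher, Ift27 (-1.64 ± 0.25) and Ift57 (-1.10 ± 0.23) lower, and Ift88 (0.94) and Ift172 (0.51) were not called. Of 43 tested members 11 were called higher and 4 lower (median 0.45), or 34.9% against 33.3% over all genes. Pkd2 and Nphp4 kept the call in each of the 6 fits that left out 1 library. Pkd1, Ift140, Ift122, Ift20, Ift27 and Ift57 lost the call without either Bec_LPCs library (adjusted p from 0.05002 to 0.179). Ift122, Ift20 and Ift57 lost it without Hep_LPCs replicate 1 (adjusted p from 0.0517 to 0.0595).

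Most proliferation genes tested were lower in Bec_LPCs. Of the mitosis genes 29 of 35 tested were called lower and 0 higher, with a median of -1.73, and of the DNA replication genes 22 of 38 lower and 0 higher, with a median of -1.28, where 17.2% of all genes were called lower. Among counted-alike members the numbers were 17 of 22 and 15 of 28. Mki67, the Ki-67 antigen, was at 102 and 177 CPM in Bec_LPCs and 883 and 402 CPM in Hep_LPCs (log2 fold change -2.20 ± 0.51, adjusted p = 0.0238). Foxm1, the factor that drives mitotic genes, was at 27.2 and 33.9 CPM in Bec_LPCs and 174 and 101 CPM in Hep_LPCs (log2 fold change -2.17 ± 0.42, adjusted p = 0.0155). Tpx2, a spindle assembly factor, was at 60.04 and 59.9 CPM in Bec_LPCs and 540.0 and 294 CPM in Hep_LPCs (log2 fold change -2.80 ± 0.35, adjusted p = 0.00507). Aurka, Aurora kinase A, was at 25.4 and 26.8 CPM in Bec_LPCs and 167 and 109.9 CPM in Hep_LPCs (log2 fold change -2.41 ± 0.35, adjusted p = 0.00777). Nusap1, a spindle microtubule protein, was at 17.4 and 18.3 CPM in Bec_LPCs and 76.97 and 73.8 CPM in Hep_LPCs (log2 fold change -2.08 ± 0.20, adjusted p = 0.002999). Hep_LPCs replicate 1 was above replicate 2 for Mki67, Tpx2, Aurka and Foxm1, and both lay above Bec_LPCs. In replication, Mcm5, of the helicase, was at 36.7 and 42.7 CPM in Bec_LPCs and 183 and 111 CPM in Hep_LPCs (log2 fold change -1.89 ± 0.39, adjusted p = 0.0181). Cdt1, which licenses origins, was at 15.8 and 16.1 CPM in Bec_LPCs and 54.2 and 50.7 CPM in Hep_LPCs (log2 fold change -1.72 ± 0.19, adjusted p = 0.00371), and Prim1 and Pola2, of the polymerase alpha-primase complex, differed by -1.97 ± 0.26 and -1.63 ± 0.16 on the log2 scale. Fen1, the flap endonuclease, was at 3.38 and 3.305 CPM in Bec_LPCs and 64.3 and 81.97 CPM in Hep_LPCs, but 84.2% of its exonic length lies under other annotated genes, and it is uncertain. Of the 29 mitosis calls 4 and 5 held without Bec_LPCs replicate 1 and replicate 2 and 14 and 24 without Hep_LPCs replicate 1 and replicate 2. Of the 22 replication calls the numbers were 1, 2, 11 and 21 in the same order. Tpx2 and Nusap1 kept the call in each of the 6 fits that left out 1 library. Mki67, Foxm1, Aurka, Mcm5, Cdt1, Prim1 and Pola2 lost the call without Bec_LPCs replicate 1 (adjusted p from 0.05004 to 0.135). Mki67, Foxm1, Aurka, Mcm5, Cdt1 and Prim1 lost it without Bec_LPCs replicate 2 (adjusted p from 0.0549 to 0.0931). Mki67, Foxm1 and Mcm5 lost it without Hep_LPCs replicate 1 (adjusted p from 0.0557 to 0.0815).

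Of 28 cell cycle inhibitors and p53 targets tested, 7 were called higher and 3 lower (median 0.24). That is 35.7%, near the 33.3% over all genes, and none of the calls held without Bec_LPCs replicate 1 or without replicate 2. Cdkn2b, p15, was at 127 and 127 CPM in Bec_LPCs and 15.01 and 33.9 CPM in Hep_LPCs (log2 fold change 2.38 ± 0.38, adjusted p = 0.00946). Cdkn2a, which encodes p16 and p19ARF, was at 114 and 111 CPM in Bec_LPCs and 58.97 and 65.8 CPM in Hep_LPCs (log2 fold change 0.85 ± 0.16, adjusted p = 0.0131), both higher in Bec_LPCs. Cdkn1a, p21, was lower at 395 and 393 CPM in Bec_LPCs and 889 and 1096 CPM in Hep_LPCs (log2 fold change -1.33 ± 0.20, adjusted p = 0.00841). Cdkn1c, p57, was at 0.3803 and 0.129 CPM in Bec_LPCs and 1.93 and 2.85 CPM in Hep_LPCs (log2 fold change -3.20 ± 0.88, adjusted p = 0.0382). Trp53inp1, a p53 target, was at 676 and 617 CPM in Bec_LPCs and 69.1 and 168 CPM in Hep_LPCs (log2 fold change 2.45 ± 0.46, adjusted p = 0.0143), while Mdm2 (0.12) and Ccng1 (0.05), other p53 targets, were not called. Cdkn2b, Cdkn2a, Cdkn1a, Cdkn1c and Trp53inp1 lost the call without either Bec_LPCs library (adjusted p from 0.0513 to 0.245). Cdkn1c lost it without Hep_LPCs replicate 1 (adjusted p = 0.0747). Cdkn1c lost it without Hep_LPCs replicate 2 (adjusted p = 0.0989).

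Many sterol and lipid synthesis genes were lower in Bec_LPCs, with 17 of 33 tested members called lower and 0 higher (median -1.0). That is 51.5%, where 17.2% of all genes were called lower. Among counted-alike members 13 of 27 were called lower. Sqle, squalene epoxidase (chromosome 15, 59315077 to 59331192), was at 38.4 and 38.2 CPM in Bec_LPCs and 226 and 242 CPM in Hep_LPCs (log2 fold change -2.61 ± 0.16, adjusted p = 9.14e-04). Cyp51, lanosterol demethylase, was at 45.5 and 48.97 CPM in Bec_LPCs and 160.4 and 234 CPM in Hep_LPCs (log2 fold change -2.06 ± 0.24, adjusted p = 0.00435). Hmgcs1, an early enzyme of the pathway, was at 57.7 and 58.8 CPM in Bec_LPCs and 125 and 194 CPM in Hep_LPCs (log2 fold change -1.45 ± 0.24, adjusted p = 0.0104). Srebf2, the factor that drives these genes, was at 135 and 135 CPM in Bec_LPCs and 249 and 433 CPM in Hep_LPCs (log2 fold change -1.33 ± 0.28, adjusted p = 0.01799). In each of these genes both Hep_LPCs libraries lay above both Bec_LPCs libraries. Scd1, the desaturase of fatty acid synthesis, was at 7.901 and 7.98 CPM in Bec_LPCs and 238 and 189 CPM in Hep_LPCs (log2 fold change -4.74 ± 0.65, adjusted p = 0.00663). Fasn, fatty acid synthase, was not called (427 and 445 CPM in Bec_LPCs and 541 and 459 CPM in Hep_LPCs; adjusted p = 0.487), nor was Acly (0.19). Sqle and Cyp51 kept the call in each of the 6 fits that left out 1 library. Hmgcs1, Srebf2 and Scd1 lost the call without either Bec_LPCs library (adjusted p from 0.0662 to 0.122).

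The list of ATF4 targets and endoplasmic reticulum stress genes had 18 of 27 members called lower and 2 higher in Bec_LPCs (median -1.21). The share called was 74.1%, against 33.3% over all genes. Atf4 itself, the factor of the amino acid response, was at 213 and 208 CPM in Bec_LPCs and 673 and 811 CPM in Hep_LPCs (log2 fold change -1.82 ± 0.27, adjusted p = 0.00817). Among enzymes of serine and folate metabolism, Shmt2 was at 90.8 and 97.5 CPM in Bec_LPCs and 429 and 533 CPM in Hep_LPCs (log2 fold change -2.35 ± 0.21, adjusted p = 0.00254). Psat1 was at 123 and 139 CPM in Bec_LPCs and 411 and 707 CPM in Hep_LPCs (log2 fold change -2.10 ± 0.33, adjusted p = 0.00876). Mthfd2 was at 47.4 and 50.4 CPM in Bec_LPCs and 109 and 109.6 CPM in Hep_LPCs (log2 fold change -1.16 ± 0.15, adjusted p = 0.00606). Asns, asparagine synthetase, was at 132 and 134 CPM in Bec_LPCs and 318 and 379 CPM in Hep_LPCs (log2 fold change -1.39 ± 0.22, adjusted p = 0.00962), and the amino acid transporter subunits Slc7a5 and Slc3a2 differed by -1.56 ± 0.22 and -2.41 ± 0.43. These members make or import amino acids. Hspa5, the chaperone BiP, was not called (828 and 843 CPM in Bec_LPCs and 1016 and 1127 CPM in Hep_LPCs; adjusted p = 0.149), nor were Xbp1 (0.43) and Ddit4 (0.16). Edem1 (1.41 ± 0.21) and Sdf2l1 (0.95 ± 0.26), of protein quality control, were the members called higher. Shmt2 kept the call in each of the 6 fits that left out 1 library. Atf4, Psat1, Mthfd2, Asns, Slc7a5, Slc3a2, Edem1 and Sdf2l1 lost the call without either Bec_LPCs library (adjusted p from 0.0634 to 0.231). Sdf2l1 lost it without Hep_LPCs replicate 1 (adjusted p = 0.107). Sdf2l1 lost it without Hep_LPCs replicate 2 (adjusted p = 0.0751).

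Of the glycolysis and hypoxia genes 12 of 31 were called lower and 2 higher (median -0.82), or 45.2% against 33.3% over all genes. Only 19 members are counted alike, of which 5 were lower and 1 higher. Ndrg1, a stress gene induced by hypoxia, was at 16.8 and 17.8 CPM in Bec_LPCs and 140.4 and 303 CPM in Hep_LPCs (log2 fold change -3.68 ± 0.42, adjusted p = 0.00421). Car12, a membrane carbonic anhydrase, was at 7.44 and 7.297 CPM in Bec_LPCs and 74.6 and 72.3 CPM in Hep_LPCs (log2 fold change -3.32 ± 0.29, adjusted p = 0.00237). Egln3, the HIF prolyl hydroxylase PHD3, was at 16.1 and 12.7 CPM in Bec_LPCs and 134 and 89.9 CPM in Hep_LPCs (log2 fold change -2.95 ± 0.26, adjusted p = 0.00244). These 3 genes were high in both Hep_LPCs libraries. Car9, another hypoxia-induced carbonic anhydrase, was higher instead, at 3.76 and 2.704 CPM in Bec_LPCs and 1 and 2 reads in Hep_LPCs, 36.6-fold higher with a counting interval of 12.3 to 179 (adjusted p = 0.0271). Vegfa (-0.45), Slc2a1 (0.48) and Pdk1 (-0.19), also hypoxia genes, were not called. Gapdh, a glycolytic enzyme with many near-identical copies, was at 1729 and 1734 CPM in Bec_LPCs and 331 and 316 CPM in Hep_LPCs and 287 and 245 CPM in NPC_LPCs, and its higher value in Bec_LPCs is uncertain. Ndrg1, Car12 and Egln3 kept the call in each of the 6 fits that left out 1 library. Car9 lost the call without either Bec_LPCs library (adjusted p from 0.118 to 0.146). Car9 lost it without Hep_LPCs replicate 1 (adjusted p = 0.112). Car9 lost it without Hep_LPCs replicate 2 (adjusted p = 0.0844).

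Several chemokines and NF-kB feedback genes were lower in Bec_LPCs, with 13 of 36 tested members called lower and 2 higher (median -0.61). The share called was 41.7%, against 33.3% over all genes. The promoters of 4 of the called genes hold the letters of an NF-kB site just before the start of transcription. The motif searched was GGGANTTTC on both strands, chosen after the values were seen. It was found in the 300-base promoters (250 bases before to 50 after the start, RefSeq, GRCm38.p6) of 4 of the 10 lower genes matched there. That is 4 of their 11 promoters (36.4%), against 1.11% of all 32851 promoters, 0.943% of those of genes tested and 0.881% of promoters of counted-alike genes called lower. Ccl2, Ccl7 and Cxcl5, also called lower, were not among the genes matched. Cxcl1, Cxcl2 and Cxcl3 are neighbours on chromosome 5 with the same matched letters, so they are not separate observations. Genes with such sites were put on the list because NF-kB controls them, so the match describes the list. Of the other motifs searched, the TEAD motif GGAATG was in 5 of these 11 promoters (45.5%, against 14.7% of all) and the interferon motif GAAANNGAA in 2 (18.2%, against 8.56% of all). The HNF1, HNF4 and AP-1 motifs were in none of them. The last 120 bases before the start of these genes follow, with matches in capitals, because their mRNAs were called lower and they carry the motif.
Cxcl1 (chr5:90891125-90891244, plus strand): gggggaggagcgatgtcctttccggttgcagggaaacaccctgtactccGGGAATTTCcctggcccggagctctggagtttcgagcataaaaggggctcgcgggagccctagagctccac
Cxcl2 (chr5:90903779-90903898, plus strand): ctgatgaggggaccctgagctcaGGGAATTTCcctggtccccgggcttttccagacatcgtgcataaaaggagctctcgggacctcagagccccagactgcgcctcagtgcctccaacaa
Cxcl3 (chr5:90785981-90786100, plus strand): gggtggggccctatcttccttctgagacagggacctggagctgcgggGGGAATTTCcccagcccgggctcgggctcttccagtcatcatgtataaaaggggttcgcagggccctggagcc
Nfkbia (chr12:55492648-55492767, minus strand): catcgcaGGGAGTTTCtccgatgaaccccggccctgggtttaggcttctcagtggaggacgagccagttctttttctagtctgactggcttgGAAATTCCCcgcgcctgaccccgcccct
Counted from the start, the match begins at -71 in Cxcl1, -97 in Cxcl2 and -73 in Cxcl3, and Nfkbia holds 2 matches. No match in a window says only that these letters are not there.

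Cxcl1, a neutrophil chemokine, was at 38.96 and 34.5 CPM in Bec_LPCs and 1097 and 1029 CPM in Hep_LPCs (log2 fold change -4.86 ± 0.28, adjusted p = 9.00e-04). Cxcl3, of the same cluster on chromosome 5, was at 0.465 and 0.258 CPM in Bec_LPCs and 24.2 and 21.7 CPM in Hep_LPCs (log2 fold change -5.96 ± 1.19, adjusted p = 0.0165). Nfkbia, the inhibitor I-kappa-B-alpha and itself an NF-kB target, was at 34.3 and 31.8 CPM in Bec_LPCs and 290.5 and 345 CPM in Hep_LPCs (log2 fold change -3.26 ± 0.18, adjusted p = 8.36e-04). Ccl2, the monocyte chemokine, was at 18.5 and 16.1 CPM in Bec_LPCs and 525 and 393 CPM in Hep_LPCs (log2 fold change -4.73 ± 0.25, adjusted p = 8.36e-04). Ccl7 was at 1.18 and 0.558 CPM in Bec_LPCs and 25.4 and 18.1 CPM in Hep_LPCs (-4.63 ± 1.05). Cxcl1, Ccl2 and Nfkbia varied little between replicates of either group. Cxcl5 was at 20.9 and 13.6 CPM in Bec_LPCs and 261 and 189.9 CPM in Hep_LPCs (-3.71 ± 0.56). Il33, an epithelial alarmin, was at 67.7 and 53.6 CPM in Bec_LPCs and 744 and 943 CPM in Hep_LPCs (-3.80 ± 1.01). In NPC_LPCs, Cxcl1 and Ccl2 were also high, at 959 and 631 CPM and 805 and 648 CPM. Not every NF-kB gene followed: Tnfaip3 (146 and 165 CPM in Bec_LPCs and 142 and 270.0 CPM in Hep_LPCs; adjusted p = 0.372), Nfkb1 (-0.05), Birc3 (-0.56) and Icam1 (-0.28) were not called, and Nfkbie, another inhibitor, was higher, at 13.6 and 12.6 CPM in Bec_LPCs and 3.28 and 5.41 CPM in Hep_LPCs (log2 fold change 1.59 ± 0.31, adjusted p = 0.0157). Of the subunits, Rela was lower at 84.97 and 84.9 CPM in Bec_LPCs and 148 and 197 CPM in Hep_LPCs (log2 fold change -1.02 ± 0.23, adjusted p = 0.0216). Cxcl1, Nfkbia and Ccl2 kept the call in each of the 6 fits that left out 1 library. Cxcl3, Ccl7, Il33, Nfkbie and Rela lost the call without Bec_LPCs replicate 1 (adjusted p from 0.119 to 0.2103). Cxcl3, Ccl7, Cxcl5, Il33, Nfkbie and Rela lost it without Bec_LPCs replicate 2 (adjusted p from 0.0625 to 0.224). Cxcl3, Ccl7 and Il33 lost it without Hep_LPCs replicate 1 (adjusted p from 0.0536 to 0.0887). Ccl7, Il33 and Rela lost it without Hep_LPCs replicate 2 (adjusted p from 0.0531 to 0.0943).

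Of 19 acute phase and complement genes tested, 8 were called lower and 1 higher (median -2.10), or 47.4% against 33.3% over all genes. None of these 9 calls held without Bec_LPCs replicate 1 or without replicate 2, and 3 held without Hep_LPCs replicate 1. Besides C3 and Lcn2, Saa3, serum amyloid A3, was at 0 reads in both Bec_LPCs libraries and 7.56 and 2.97 CPM in Hep_LPCs (at least 41.2-fold lower), and Hp, haptoglobin, at 2 and 0 reads in Bec_LPCs and 9.09 and 1.19 CPM in Hep_LPCs, 121-fold lower with a counting interval of 33.1 to 1009 (adjusted p = 0.0404). Hep_LPCs replicate 1 was above replicate 2 in all 4 genes. Crp, C-reactive protein, was the member called higher, at 13.01 and 10.9 CPM in Bec_LPCs and 0 and 0.416 CPM in Hep_LPCs (5.81 ± 1.37). With limma-voom Saa3 was not called (adjusted p = 0.162). C3, Lcn2, Saa3, Hp and Crp lost the call without either Bec_LPCs library (adjusted p from 0.103 to 0.198). Saa3, Hp and Crp lost it without Hep_LPCs replicate 1 (adjusted p from 0.0711 to 0.148). Saa3 lost it without Hep_LPCs replicate 2 (adjusted p = 0.0696). Of the immediate early genes 15 of 33 were called lower and 0 higher (median -1.36). That is 45.5%, where 17.2% of all genes were called lower. Among counted-alike members 10 of 28 were called lower (median -1.17). Zfp36, which destabilizes inflammatory mRNAs, was at 27.6 and 30.2 CPM in Bec_LPCs and 332 and 394 CPM in Hep_LPCs (log2 fold change -3.65 ± 0.20, adjusted p = 8.36e-04). Jun, an AP-1 subunit, was at 86.8 and 94.04 CPM in Bec_LPCs and 261 and 392 CPM in Hep_LPCs (log2 fold change -1.85 ± 0.32, adjusted p = 0.01198). Dusp1, a MAP kinase phosphatase, was at 184 and 179.9 CPM in Bec_LPCs and 483 and 453 CPM in Hep_LPCs (log2 fold change -1.36 ± 0.15, adjusted p = 0.00363). Atf3 was at 15.6 and 17.9 CPM in Bec_LPCs and 65.5 and 76.6 CPM in Hep_LPCs (log2 fold change -2.08 ± 0.19, adjusted p = 0.00263). All 4 genes are switched on within minutes of a stimulus. Socs3, a feedback inhibitor of cytokine signalling, was at 11.7 and 8.41 CPM in Bec_LPCs and 68.8 and 77.4 CPM in Hep_LPCs (log2 fold change -2.86 ± 0.43, adjusted p = 0.00838). Fos (22.1 and 19.2 CPM in Bec_LPCs and 25.4 and 87.1 CPM in Hep_LPCs; adjusted p = 0.147), Egr1 (149 and 145 CPM in Bec_LPCs and 216 and 135 CPM in Hep_LPCs; adjusted p = 0.622) and Myc (-1.39, adjusted p = 0.0567) were not called. A sort is stated for Bec_LPCs alone, and the part of cell handling in these genes was not tested. Zfp36 and Atf3 kept the call in each of the 6 fits that left out 1 library. Jun and Dusp1 lost the call without Bec_LPCs replicate 1 (adjusted p from 0.0654 to 0.0911). Jun, Dusp1 and Socs3 lost it without Bec_LPCs replicate 2 (adjusted p from 0.0634 to 0.0775).

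Interferon-stimulated genes had a median of 1.75 (1.69 with members at 0 reads in 1 group set to their bound). Yet 6 of 38 were called higher and 2 lower, or 21.1% against 33.3% over all genes. Ifi27 was at 28.1 and 23.7 CPM in Bec_LPCs and 1.47 and 2.02 CPM in Hep_LPCs (log2 fold change 3.89 ± 0.29, adjusted p = 0.00157). Bst2, tetherin, was at 38.4 and 34.6 CPM in Bec_LPCs and 10.3 and 12.01 CPM in Hep_LPCs (log2 fold change 1.71 ± 0.45, adjusted p = 0.0338). Irf9, of the interferon transcription complex, was at 24.5 and 20.99 CPM in Bec_LPCs and 7.45 and 9.99 CPM in Hep_LPCs (log2 fold change 1.38 ± 0.33, adjusted p = 0.0257). Isg20, an exonuclease, was lower at 11.4 and 8.76 CPM in Bec_LPCs and 48.1 and 41.5 CPM in Hep_LPCs (log2 fold change -2.15 ± 0.24, adjusted p = 0.00401). Cxcl10, a chemokine also induced by NF-kB, was at 0.718 and 1.16 CPM in Bec_LPCs and 14.5 and 17.9 CPM in Hep_LPCs (log2 fold change -4.10 ± 1.19, adjusted p = 0.0447). Both directions thus occurred among the called members. Ifit1, a classic member, was at 3.38 and 1.76 CPM in Bec_LPCs and 0 reads in both Hep_LPCs libraries and was not called (adjusted p = 0.0523). The NPC_LPCs libraries, which share the fit, were at 16.3 and 124 CPM of Ifit1. For MHC class I, 6 of 18 were called higher and 1 lower (median 1.26), or 38.9% against 33.3% over all genes. The class I gene H2-K1 was at 173 and 171 CPM in Bec_LPCs and 45.7 and 89.2 CPM in Hep_LPCs (log2 fold change 1.35 ± 0.32, adjusted p = 0.0256), the peptide transporter gene Tap1 at 34.7 and 29.4 CPM in Bec_LPCs and 8.91 and 10.1 CPM in Hep_LPCs (log2 fold change 1.75 ± 0.31, adjusted p = 0.0121). Tap2 was at 4.73 and 4.85 CPM in Bec_LPCs and 0.645 and 1.66 CPM in Hep_LPCs (2.05 ± 0.53). B2m, the class I light chain, was not called (567 and 540.4 CPM in Bec_LPCs and 927 and 671 CPM in Hep_LPCs; adjusted p = 0.113). Class I genes resemble each other, and H2-D1 and H2-Q4, also called higher, are uncertain. With limma-voom Bst2 was not called (adjusted p = 0.0686). Ifi27 kept the call in each of the 6 fits that left out 1 library. Bst2, Irf9, Cxcl10, H2-K1, Tap1 and Tap2 lost the call without Bec_LPCs replicate 1 (adjusted p from 0.0863 to 0.246). Bst2, Irf9, Isg20, Cxcl10, H2-K1, Tap1 and Tap2 lost it without Bec_LPCs replicate 2 (adjusted p from 0.05095 to 0.2). Bst2, Irf9, Cxcl10, Tap1 and Tap2 lost it without Hep_LPCs replicate 1 (adjusted p from 0.05305 to 0.139). Bst2, Irf9 and Cxcl10 lost it without Hep_LPCs replicate 2 (adjusted p from 0.05097 to 0.111).

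Of 19 intestinal and brush border genes tested, 9 were called lower in Bec_LPCs (47.4%, against 17.2% of all genes) and 0 higher (median -1.91). Of these calls 3 held without Bec_LPCs replicate 1 and 3 without replicate 2. Besides Cdx2 and Lgals2, Cdhr5, a protocadherin that links microvilli, was at 0 reads in both Bec_LPCs libraries and 29.8 and 14.4 CPM in Hep_LPCs (at least 173-fold lower), with 0 reads in both NPC_LPCs libraries. Its partner Cdhr2 was at 0.211 and 0.472 CPM in Bec_LPCs and 10.7 and 50.7 CPM in Hep_LPCs (-6.47 ± 1.17). Lgals4, galectin-4, was at 1.44 and 1.03 CPM in Bec_LPCs and 31.1 and 12.4 CPM in Hep_LPCs (log2 fold change -4.13 ± 0.57, adjusted p = 0.00676). Myo7b, the brush border myosin of that adhesion complex, was at 1.31 and 2.15 CPM in Bec_LPCs and 41.6 and 8.98 CPM in Hep_LPCs (-3.87 ± 0.91). Vil1, villin (10.3 and 9.31 CPM in Bec_LPCs and 19.3 and 11.2 CPM in Hep_LPCs; adjusted p = 0.671), Anpep (-1.91) and Dpp4 (0.47) were not called. The Cdhr2 promoter is shown because it holds the letters of an HNF1 site, TTAATNATT on either strand, in capitals, at -53 from the start (RefSeq, GRCm38.p6).
Cdhr2 (chr13:54701343-54701462, plus strand): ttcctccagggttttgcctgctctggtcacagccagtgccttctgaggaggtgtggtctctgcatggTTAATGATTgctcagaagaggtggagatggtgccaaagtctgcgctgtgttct
That motif was in 1.04% of promoters of counted-alike genes called higher and 1.26% of those called lower, against 0.694% for all genes tested and 1.47% of all promoters. The HNF4 motif CAAAGTCCA was in 0.382% and 0.692% of the called groups (0.408% of genes tested, 0.475% of all), the TEAD motif GGAATG in 11.6% and 13% of the called groups (12.3% of genes tested, 14.7% of all), the AP-1 motif TGANTCA in 6.6% and 6.04% of the called groups (5.61% of genes tested, 7.81% of all) and the interferon motif GAAANNGAA in 7.26% and 6.36% of the called groups (6.87% of genes tested, 8.56% of all). For HNF1 and AP-1 both called groups lay above the genes tested and below all promoters, so the direction depends on the background, and no difference between these shares was tested. Cdhr5 kept the call in each of the 6 fits that left out 1 library. Cdhr2, Lgals4 and Myo7b lost the call without either Bec_LPCs library (adjusted p from 0.0513 to 0.153). Myo7b lost it without Hep_LPCs replicate 1 (adjusted p = 0.0934).

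Of 21 retinoid genes tested, 1 was called higher and 5 lower (median -0.84), or 28.6% against 33.3% over all genes. Stra6 and Rbp4, of retinol uptake and transport, were among the lower ones with the values above. Bco1, which cleaves beta-carotene, was lower at 1.52 and 2.27 CPM in Bec_LPCs and 32.1 and 35.5 CPM in Hep_LPCs (log2 fold change -4.15 ± 0.35, adjusted p = 0.00223). Aldh1a2, which makes retinoic acid, was higher, at 24.6 and 34.2 CPM in Bec_LPCs and 0.528 and 0.535 CPM in Hep_LPCs (log2 fold change 5.77 ± 0.57, adjusted p = 0.00308), while Aldh1a1 (-0.94) and Aldh1a3 (-0.84) were not called. The receptor Rarg was at 30.4 and 28.5 CPM in Bec_LPCs and 54.8 and 59.5 CPM in Hep_LPCs (-0.96 ± 0.19), and Rara (0.24) and Rxra (-0.73) were not called. Bco1, Aldh1a2 and Rbp4 kept the call in each of the 6 fits that left out 1 library. Rarg and Stra6 lost the call without either Bec_LPCs library (adjusted p from 0.103 to 0.156).

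Liver transporters and detoxifying enzymes were mixed. The basolateral bile acid exporters differed in direction: Abcc3 was at 16.01 and 15.6 CPM in Bec_LPCs and 363 and 212 CPM in Hep_LPCs (log2 fold change -4.18 ± 0.77, adjusted p = 0.0136). Abcc4 was at 926 and 901 CPM in Bec_LPCs and 276 and 343 CPM in Hep_LPCs (log2 fold change 1.56 ± 0.35, adjusted p = 0.02201). Abca1, which exports cholesterol to HDL, was at 28.9 and 23.8 CPM in Bec_LPCs and 0.762 and 0.238 CPM in Hep_LPCs (log2 fold change 5.70 ± 0.87, adjusted p = 0.00844), and Slco2a1, a prostaglandin transporter, was lower at 305 and 317 CPM in Bec_LPCs and 799 and 809 CPM in Hep_LPCs (log2 fold change -1.37 ± 0.22, adjusted p = 0.00938). Export pumps thus differed in both directions. Por, the reductase that serves all microsomal cytochromes P450, was at 99.6 and 103 CPM in Bec_LPCs and 488 and 468 CPM in Hep_LPCs (log2 fold change -2.24 ± 0.36, adjusted p = 0.00935). Cyp2s1 was at 5.11 and 4.81 CPM in Bec_LPCs and 64.3 and 97.96 CPM in Hep_LPCs (log2 fold change -4.03 ± 0.28, adjusted p = 0.00137). Counts were 5 higher and 4 lower of 21 transporters (42.9% called) and 3 and 5 of 27 P450 and conjugation enzymes (29.6%). They were 2 and 7 of 30 fatty acid oxidation genes (30%) and 4 and 5 of 38 NRF2 and glutathione genes (23.7%). Over all genes tested 33.3% were called, so only the transporters lay above that share. The NRF2 targets Nqo1 (0.54), Hmox1 (-0.15), Gclc (-0.75) and Txnrd1 (0.13) were not called. Acsl1 (log2 fold change -1.40 ± 0.21, adjusted p = 0.00794) and Acsl5 (log2 fold change -1.38 ± 0.29, adjusted p = 0.0194), which activate fatty acids, were lower, and Cpt1a (-0.52), the gate of mitochondrial oxidation, was not called. Abca1 and Cyp2s1 kept the call in each of the 6 fits that left out 1 library. Abcc3, Abcc4, Slco2a1, Por, Acsl1 and Acsl5 lost the call without either Bec_LPCs library (adjusted p from 0.0681 to 0.125). Abcc4 lost it without Hep_LPCs replicate 1 (adjusted p = 0.0961). Abcc4 lost it without Hep_LPCs replicate 2 (adjusted p = 0.05899).

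Fetal, progenitor and imprinted genes went both ways. Igf2bp1, a fetal RNA-binding protein, was at 12.04 and 12.1 CPM in Bec_LPCs and 83.5 and 55.5 CPM in Hep_LPCs (log2 fold change -2.52 ± 0.26, adjusted p = 0.00343), and Cd44, the hyaluronan receptor of progenitor and mesenchymal cells, was higher at 1486 and 1466 CPM in Bec_LPCs and 470.3 and 582 CPM in Hep_LPCs (log2 fold change 1.49 ± 0.18, adjusted p = 0.00474). Of 14 progenitor markers 1 was called higher and 3 lower, or 28.6% against 33.3% over all genes. Their median of -0.66 turned to 0.19 without Hep_LPCs replicate 1 and to 0.23 with the replicate block in only the 4 libraries. Igf2r, the imprinted clearance receptor of IGF2, was at 1026 and 1001 CPM in Bec_LPCs and 259 and 266 CPM in Hep_LPCs (log2 fold change 1.95 ± 0.16, adjusted p = 0.00189). Nnat, neuronatin, was at 6.59 and 6.48 CPM in Bec_LPCs and 0 reads in both Hep_LPCs libraries (at least 36.9-fold higher). Grb10 was at 106 and 109 CPM in Bec_LPCs and 366 and 252 CPM in Hep_LPCs (-1.52 ± 0.31). Of 20 imprinted genes 5 were called higher and 6 lower, or 55% against 33.3% over all genes. Igf2bp1 and Igf2r kept the call in each of the 6 fits that left out 1 library. Cd44, Nnat and Grb10 lost the call without either Bec_LPCs library (adjusted p from 0.0545 to 0.111). Grb10 lost it without Hep_LPCs replicate 1 (adjusted p = 0.0606).

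Most leukocyte and endothelial transcripts named here were at low levels, and mesothelial ones were not. Laptm5, a lysosomal protein of blood cells, was at 1.35 and 1.42 CPM in Bec_LPCs and 0 reads in both Hep_LPCs libraries (at least 7.82-fold higher). Ptprc, CD45, was at 0.592 and 0.773 CPM in Bec_LPCs and 0.176 and 0.0594 CPM in Hep_LPCs (adjusted p = 0.07595). C1qa, of macrophages, was at 0.718 and 0.3005 CPM in Bec_LPCs and 0 reads in both Hep_LPCs libraries, below the filter. Lyz2, macrophage lysozyme, was at 12.3 and 14.4 CPM in Bec_LPCs and 0.293 and 0.0594 CPM in Hep_LPCs but has a near-identical copy. The whole leukocyte and macrophage list overlapped, at 85.2 and 81.0 CPM in Bec_LPCs and 124 and 57.5 CPM in Hep_LPCs. Of its 8 members tested 3 were called higher and 1 lower, or 50% against 33.3% over all genes. The median of 1.07 turned to -0.23 without Bec_LPCs replicate 2 and to -0.31 with genes of at least 10 CPM in 2 libraries. Of 8 endothelial genes tested 3 were called lower in Bec_LPCs and 0 higher, or 37.5% against 33.3% over all genes. The endothelial median of -0.91 turned to 1.06 with no filter, 1.68 without Hep_LPCs replicate 2 and 1.01 without NPC_LPCs replicate 1. Of the lower genes, Ptprb was at 27.7 and 30.4 CPM in Bec_LPCs and 90.7 and 246 CPM in Hep_LPCs (-2.54 ± 0.70). Kdr was at 1.48 and 0.987 CPM in Bec_LPCs and 7.15 and 5.77 CPM in Hep_LPCs (-2.38 ± 0.49). Esam was at 1.65 and 1.59 CPM in Bec_LPCs and 7.33 and 12.01 CPM in Hep_LPCs (-2.57 ± 0.44), whereas Pecam1, at 0.423 and 0.644 CPM in Bec_LPCs and 0 and 1 reads in Hep_LPCs, was below the filter. The mesothelial list summed to 4173 and 4210 CPM in Bec_LPCs and 4886 and 9266 CPM in Hep_LPCs. Of its 10 members tested 1 was called higher and 1 lower (20%, against 33.3% over all genes). Its median of -0.84 turned to 0.53 without Hep_LPCs replicate 2. Its members Msln (566 and 528 CPM in Bec_LPCs and 209 and 828 CPM in Hep_LPCs; adjusted p = 0.939) and Wt1 (0.169 and 0.601 CPM in Bec_LPCs and 0.176 and 0.773 CPM in Hep_LPCs; adjusted p = 0.874) were not called. Laptm5, Ptprb, Kdr and Esam lost the call without either Bec_LPCs library (adjusted p from 0.118 to 0.213). Ptprb lost it without Hep_LPCs replicate 2 (adjusted p = 0.145).

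Ribosomal protein genes were touched by overlaps and copies in most cases. Of 81 tested, 20 were called higher and 16 lower (44.4%, against 33.3% over all genes), but only 5 are counted alike. Rpl24 was at 1.44 and 0.944 CPM in Bec_LPCs and 389.7 and 354 CPM in Hep_LPCs and Rps10 at 3.97 and 2.79 CPM in Bec_LPCs and 464 and 478 CPM in Hep_LPCs, with 285 and 282 CPM and 341 and 398 CPM in NPC_LPCs. Both have near-identical copies and lie partly under genes that no table lists. Among the counted-alike members, Rpl39 was at 224 and 195 CPM in Bec_LPCs and 61.5 and 74.3 CPM in Hep_LPCs (log2 fold change 1.63 ± 0.18, adjusted p = 0.00414). Rps29 was at 243 and 238 CPM in Bec_LPCs and 81.8 and 133 CPM in Hep_LPCs (log2 fold change 1.16 ± 0.25, adjusted p = 0.0207). Rpl39 kept the call in each of the 6 fits that left out 1 library. Rps29 lost the call without either Bec_LPCs library (adjusted p from 0.113 to 0.122).

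**Figure D4:**
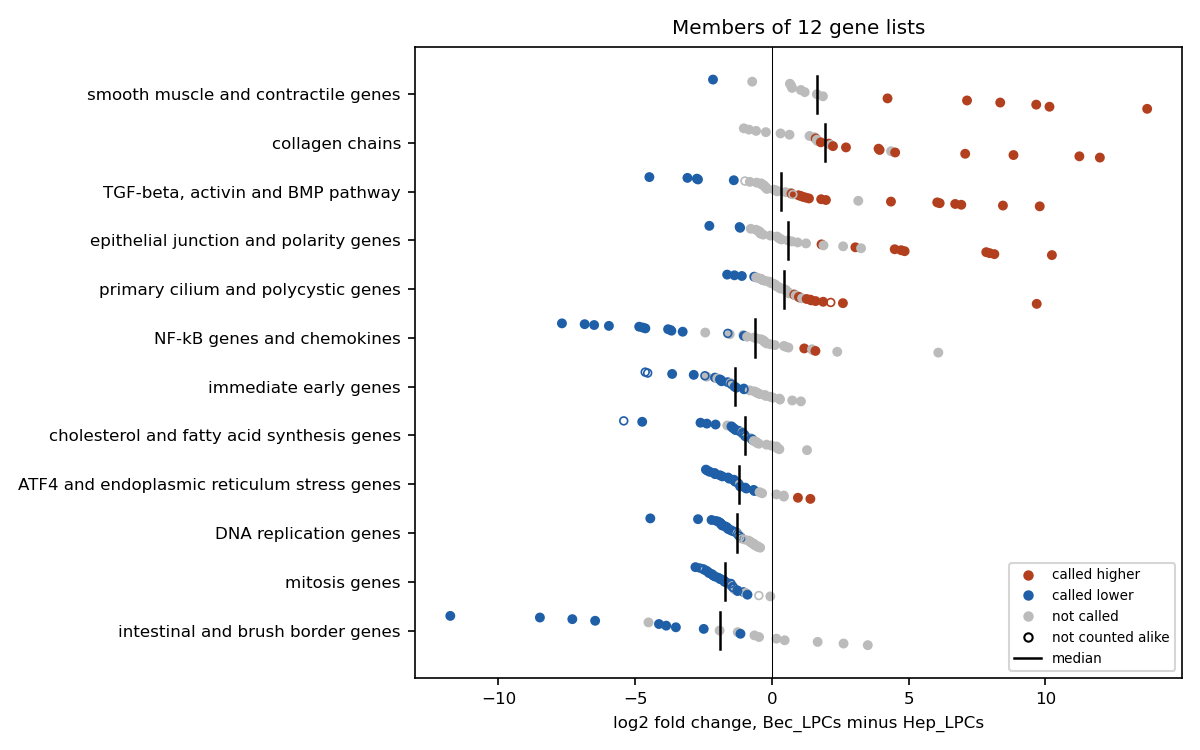
Log2 fold change, Bec_LPCs minus Hep_LPCs, of each tested member of 12 lists, coloured by call, with open circles for genes not counted alike and a bar at the median. Mitosis, DNA replication, sterol and ATF4 genes lie mostly left of 0, collagen chains mostly right of it, and junction, TGF-beta and NF-kB genes spread to both sides.

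**Figure D5:**
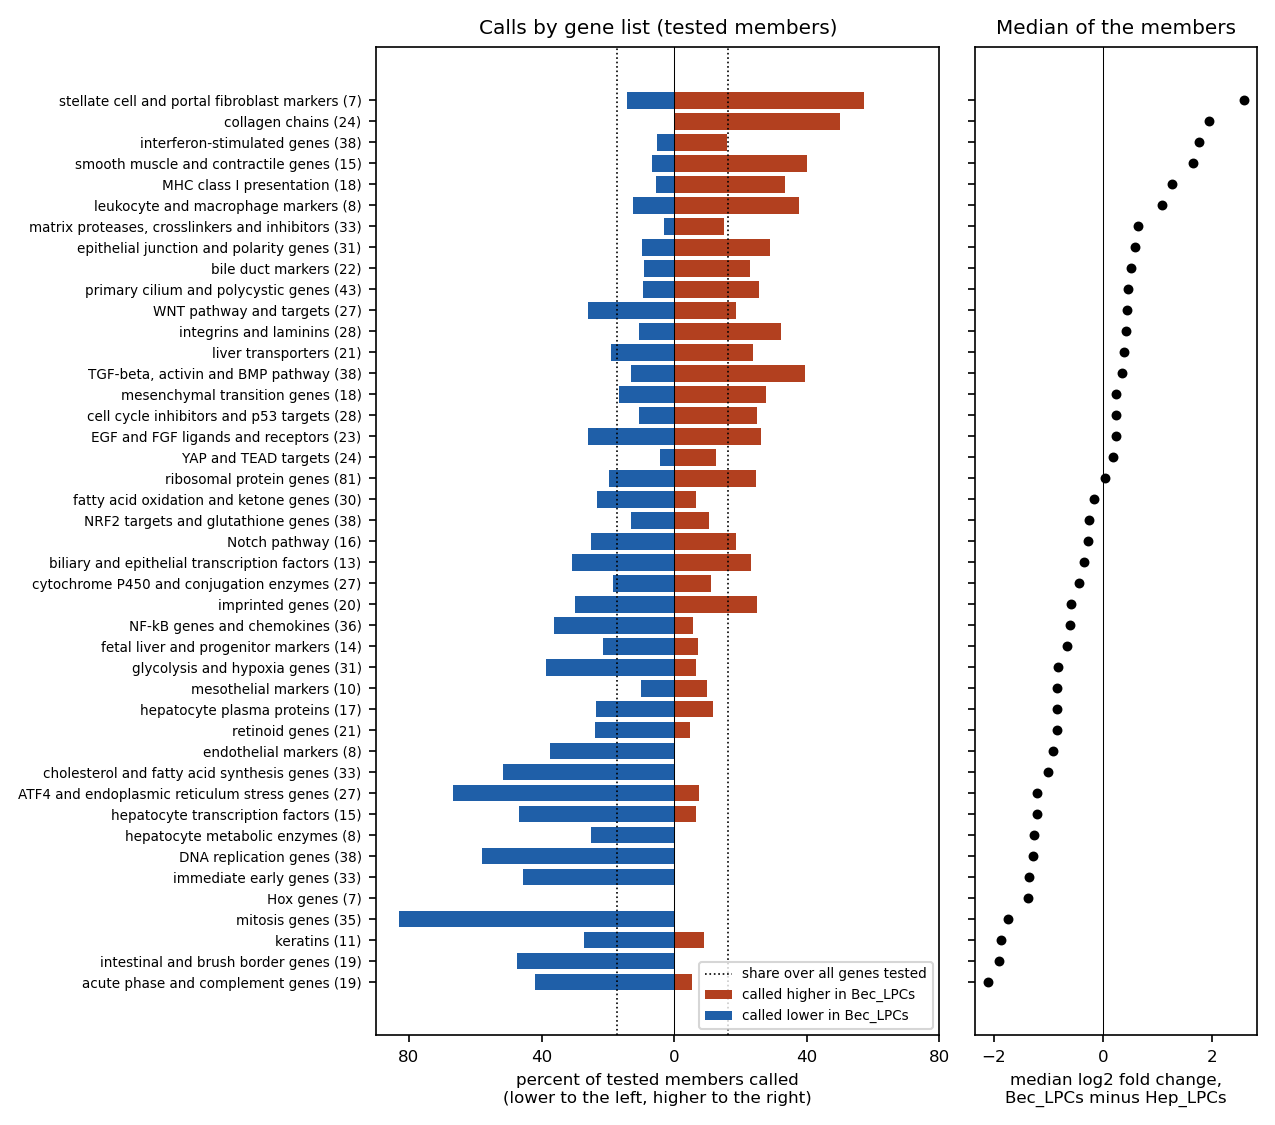
For the 43 gene lists (tested members in brackets), the percent of tested members called higher (right) and lower (left) in Bec_LPCs, with dotted lines at the shares over all genes tested (16.1% and 17.2%), and the median log2 fold change. Mitosis genes reach 82.9% and stellate and portal fibroblast markers 71.4% (5 of 7) called in either direction.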

How the data were processed

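Per the labels, polyadenylated RNA was made into stranded paired-end libraries (TruSeq Stranded mRNA). The authors deposited raw counts per gene symbol, 1 table per library, and FPKM values for Hep_LPCs and NPC_LPCs alone, which were not used here. Trimmomatic, HISAT2, Cufflinks, HTSeq, DESeq and mm10 are named, per the submitters' processing notes, with no role or version; counter and strand settings are not stated in these sources. Bec_LPCs tables list 21834 symbols and the others 21878. Older symbols were updated (11 and 796), unnamed entries (14, at most 0.000191% of reads) and 13 mitochondrial genes (4.19% and 4.26% of Bec_LPCs reads) left out.

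The counts were fitted with edgeR 4.0.16 (R 4.3.3; filterByExpr, TMM, robust quasi-likelihood test, two-sided, Benjamini-Hochberg adjustment over all genes tested) over all 6 libraries, with 3 residual degrees of freedom, and called at an adjusted p under 0.05. limma 3.58.1 and DESeq2 1.42.0 gave alternatives. Scripts were tested on simulated data. Overlaps (bedtools 2.31.1) and copies (minimap2 2.31-r1302) came from GENCODE M21. A fold against 0 reads used a floor of 3 reads per library, and 1 to 3 reads gave a ratio with an exact 95% interval, covering counting error only.

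Named genes are the 12 largest increases and decreases from 32 CPM, up to 4 called counted-alike members of each list by adjusted p, and key genes; further members were chosen after their values were seen. Members and lists were chosen with earlier results of these data known. Some genes of the lists enter the counts but are not reported here by name.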

Additional observations from a re-analysis of the deposited data

How the results depend on the processing

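The 4277 calls, with 48.4% higher in Bec_LPCs, became 471 to 4894 when 1 library was left out, with 43.1% to 48.8% higher. The lowest counts, 471 and 482, came without Bec_LPCs replicate 1 and without Bec_LPCs replicate 2, where 43.1% and 43.8% of calls were higher, and a group of 1 library is assumed there to vary like the others. A 2-fold minimum left 978 calls (45.5% higher). The share called higher was 60.8% with library size alone, 46.7% with at least 10 CPM in 2 libraries, 50.8% with limma-voom, and, chosen after seeing the data, 45.7% with limma-voom and a spread for each group. The other planned settings gave 3224 to 5390 calls. Of the 172 called genes that the naming rule gave, 63 and 66 kept the call without Bec_LPCs replicate 1 and replicate 2, 141 and 150 without Hep_LPCs replicate 1 and replicate 2, and all 172 without either NPC_LPCs library, and none changed direction in any setting run. A 2-fold minimum ended 63 of these calls, limma-voom 13, limma-voom with a spread for each group 11, the replicate block 4, no filter and library size alone 3 each, and DESeq2, counted-alike genes only and genes clear of every annotated neighbour 1 each. With limma-voom these were Acan, Bst2, C3, Cldn4, Krt80, Lcn2, Lox, Psmb8, Ptk7, Rhoj, Saa3, Tm4sf1 and Xirp2, and with the replicate block Cd24a, Krt15, Krt80 and Ptprb. With library size alone they were Asap1, Cd24a and Krt80, and with no filter Krt15, Ptk7 and Xirp2.

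Equal replicate numbers do not mark a stated pairing, and deviations of same-numbered libraries correlated at -0.0392 between Bec_LPCs and Hep_LPCs. With the replicate block there were 3377 calls, 47.7% higher, and with the replicate block in only the 4 libraries, added after seeing the data, 4887 calls, 50.3% higher.

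Directions reversed for 3 uncalled genes, and the cause was not tested. Alb turned to a log2 fold change of 0.15 with limma-voom, with or without a spread for each group (adjusted p = 0.937 and 0.938), and ran from -1.77 without Hep_LPCs replicate 2 to 2.5 without Hep_LPCs replicate 1. Spp1 was at -0.20 without Hep_LPCs replicate 2 and at 1.54 without Hep_LPCs replicate 1. Ttr turned to -0.0034 with limma-voom, -0.0033 with a spread for each group, -0.02 with counted-alike genes only, -0.04 with genes clear of every annotated neighbour, -0.0049 with the replicate block in 4 libraries, -0.37 without Bec_LPCs replicate 1 (0.36 without Bec_LPCs replicate 2) and -0.11 without Hep_LPCs replicate 1.

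With 2 libraries a group, and Bec_LPCs replicates far closer to each other than those of the other groups, the fit estimates 1 spread per gene over the 3 groups. Differences in genes near the floor of 0.127 to 0.178 CPM were not detectable at this depth.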
